A study of Mus musculus with 32 samples.

Results

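The 33 genes described here carry out or control glycolysis, or respond to low oxygen, and were followed through the reprogramming of mouse fibroblasts and in embryonic stem cells. They were chosen by name from what is known of the pathway, with earlier results of these data known. Counts of members called are therefore not those of a list picked blind to the data. All 33 were found as columns of all 32 count tables, which hold 24421 genes. They comprise the glucose transporters Slc2a1 and Slc2a3, the enzymes from hexokinase (Hk1, Hk2) to pyruvate kinase (Pkm), the lactate dehydrogenases and lactate transporters, the switch genes Pdk1, Pfkfb3 and Pfkfb4, and 8 genes of the hypoxia response led by Hif1a. Of these, 32 passed the filter on low counts and were tested. Eno1 was listed at 0 UMIs (unique molecular identifiers, each counting 1 captured transcript) in every library, while a column named Eno1b held 379 and 425 CPM (counts scaled to a common library total) in embryonic stem cells, so nothing is said of Eno1.

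The study measured single-cell 3' RNA counts in 16 groups of 2 libraries, replicates A and B. Mouse embryonic fibroblasts (MEFs) were sampled untreated, during reprogramming in serum medium alone (FBS, labelled as no treatment) on days 3, 6, 9 and 12, and during reprogramming with all additives (A2S) on days 2, 4 and 6. Reprogramming cultures sat on irradiated feeder MEFs with doxycycline at 2 ug/mL, which the labels do not state for FBS cultures one by one. A2S joins ascorbic acid at 50 ug/mL, SGC0946, an inhibitor of the histone methyltransferase DOT1L, at 5 uM (where the dose is given the name is spelled SGC09456), and 2i, the GSK3 inhibitor CHIR-99021 with the MEK inhibitor PD-0325901, added after 12 h. Read from their letters, A2 is A2S without SGC0946, S2 is without ascorbic acid and AS without 2i, each on days 4 and 6, and V6.5 embryonic stem cells (ESCs) were sampled without additives or as A2S day 2. All groups shared a base medium with serum and leukemia inhibitory factor. All MEF groups are labelled embryonic in age, and the ESCs are 1 line. The labels give neither the transgenes that doxycycline acts on nor the oxygen level, and they do not say whether the ESCs received doxycycline or whether replicates were separate cultures, so p-values measure only the spread between these libraries, which may be technical.

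Cells on the authors' list of feeder cells were left out, which left 138 to 431 cells and 1727490 to 8848775 UMIs per library, with medians of 5221 to 23334 UMIs per cell, and 28 cell barcodes occurred in more than 1 library. The replicates of AS day 4 stood apart, with a chi-square of 8.62 per degree of freedom between them, against 1.64 to 3.61 in the other groups. The labelled cell types had their markers: 9 fibroblast genes summed to 16496 and 15289 CPM in MEFs and 333 and 342 in ESCs, and 10 pluripotency genes to 0.340 and 2.00 CPM in MEFs and 4841 and 4633 in ESCs. All values sum the cells of a library, or of a class of cells within it. In such sums, fewer cells of a type and less RNA per cell cannot be told apart. The deposited counts of single cells were not used to separate them.

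In glycolysis, glucose enters through SLC2A transporters, is phosphorylated by hexokinase, and is split and oxidised to pyruvate, which lactate dehydrogenase can reduce to lactate for export through SLC16A transporters. HIF1A is a transcription factor whose protein is destroyed after hydroxylation by the EGLN enzymes when oxygen is present, and whose targets include most glycolytic genes, Pdk1 (whose product keeps pyruvate out of the TCA cycle), Vegfa, Bnip3 and Egln3 itself. EGLN enzymes need iron, and ascorbic acid is a cofactor of this enzyme class. Pluripotent cells are known for a high glycolytic rate, and reprogramming of fibroblasts involves a shift from respiration toward glycolysis.

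The HIF complex binds short sites with the core ACGTG or GCGTG, and promoter windows of 6 members are printed to show where these letters lie. RefSeq's promoter table (GRCm38.p6; 250 bases before to 50 after a start site) matched 31 of the 33 members, with 45 windows. Both cores were searched on both strands, so a CACGTG counts as ACGTG on each strand. ACGTG was found in 24 of the 45 windows and GCGTG in 26, and at least 1 of them in 36, beside 19.62%, 32.39% and 43.77% of all 32851 windows of this length. Some windows of Eno1, Aldoa and Pfkm overlap, so the same letters can count in more than 1 window. By gene, 21 of the 31 held ACGTG in a window and 28 held either core. A match is only a run of letters, not a measured binding site. All 6 printed windows hold ACGTG, so they do not stand for the members at large. Neither window of Pdk1 holds ACGTG, and those of Tpi1, Gpi1 and Eno2 hold neither core. A further window of Ldha, not printed, holds GCGTG only. Slc2a3 and Ndrg1 had no window. Capitals mark the cores (CACGT and CACGC where they lie on the other strand), written 5′ to 3′ on the gene's strand:
Slc2a1 promoter, chr4:119108495-119108794, plus strand: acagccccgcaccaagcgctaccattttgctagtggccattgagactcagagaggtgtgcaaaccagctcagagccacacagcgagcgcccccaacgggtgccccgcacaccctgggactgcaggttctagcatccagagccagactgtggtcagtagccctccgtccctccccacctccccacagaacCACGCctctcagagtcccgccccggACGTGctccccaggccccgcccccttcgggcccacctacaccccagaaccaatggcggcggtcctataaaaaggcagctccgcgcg
Pgk1 promoter, chrX:106186850-106187149, plus strand: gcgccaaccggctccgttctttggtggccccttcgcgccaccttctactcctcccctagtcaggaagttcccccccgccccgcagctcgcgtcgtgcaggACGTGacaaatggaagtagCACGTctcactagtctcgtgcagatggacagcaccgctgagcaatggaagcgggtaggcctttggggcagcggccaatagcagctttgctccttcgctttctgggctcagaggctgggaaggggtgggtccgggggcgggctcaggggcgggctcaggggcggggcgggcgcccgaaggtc
Ldha promoter, chr7:46845554-46845853, plus strand: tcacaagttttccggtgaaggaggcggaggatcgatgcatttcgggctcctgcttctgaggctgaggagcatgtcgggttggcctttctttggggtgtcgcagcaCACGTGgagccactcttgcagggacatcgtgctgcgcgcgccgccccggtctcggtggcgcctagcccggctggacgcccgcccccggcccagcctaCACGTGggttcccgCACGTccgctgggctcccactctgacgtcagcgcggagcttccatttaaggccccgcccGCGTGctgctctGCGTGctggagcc
Slc16a3 promoter, chr11:120948817-120949116, plus strand: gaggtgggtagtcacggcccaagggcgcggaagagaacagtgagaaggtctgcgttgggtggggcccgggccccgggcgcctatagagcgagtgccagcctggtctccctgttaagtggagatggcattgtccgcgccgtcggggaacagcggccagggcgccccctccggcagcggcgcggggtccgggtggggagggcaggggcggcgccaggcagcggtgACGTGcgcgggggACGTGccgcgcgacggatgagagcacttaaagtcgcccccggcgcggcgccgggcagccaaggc
Bnip3 promoter, chr7:138909457-138909756, minus strand: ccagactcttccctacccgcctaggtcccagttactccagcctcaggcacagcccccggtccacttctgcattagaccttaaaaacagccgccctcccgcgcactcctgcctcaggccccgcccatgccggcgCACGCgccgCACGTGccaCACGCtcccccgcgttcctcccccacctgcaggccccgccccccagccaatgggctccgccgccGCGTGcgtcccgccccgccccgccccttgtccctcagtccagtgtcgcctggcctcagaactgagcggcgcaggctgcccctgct
Egln3 promoter, chr12:54203825-54204124, minus strand: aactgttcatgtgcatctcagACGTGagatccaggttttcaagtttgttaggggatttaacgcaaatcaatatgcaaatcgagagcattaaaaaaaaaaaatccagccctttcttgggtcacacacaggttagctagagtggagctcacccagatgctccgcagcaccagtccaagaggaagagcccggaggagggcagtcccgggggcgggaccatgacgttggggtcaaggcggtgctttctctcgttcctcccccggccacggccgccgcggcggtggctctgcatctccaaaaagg

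Together the members took 0.603% and 0.616% of all UMIs in the 2 MEF libraries. In A2S they took 0.682% and 0.671% on day 2, 0.855% and 0.788% on day 4 and 1.24% and 1.29% on day 6, the largest share of any group. The share was 0.9996% and 1.02% in S2 day 6 but 0.654% and 0.673% in A2 day 6 and 0.595% and 0.620% in AS day 6. Serum reprogramming showed no such climb, with 0.725% and 0.671% on day 3, 0.466% and 0.500% on day 9 and 0.584% and 0.626% on day 12. ESCs held 0.995% and 1.01%, and ESCs with A2S 0.550% and 0.531%. UMIs at the 3' end are not scaled by length. Apart from this joint share and the shares of UMIs between related genes given below, no level is compared between genes. Aldoa, Tpi1, Gapdh, Pgk1, Pgam1, Pkm and Ldha have near-identical copies or pseudogenes, so their counts depend on how the authors' counting assigned shared reads.

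**Figure D1:**
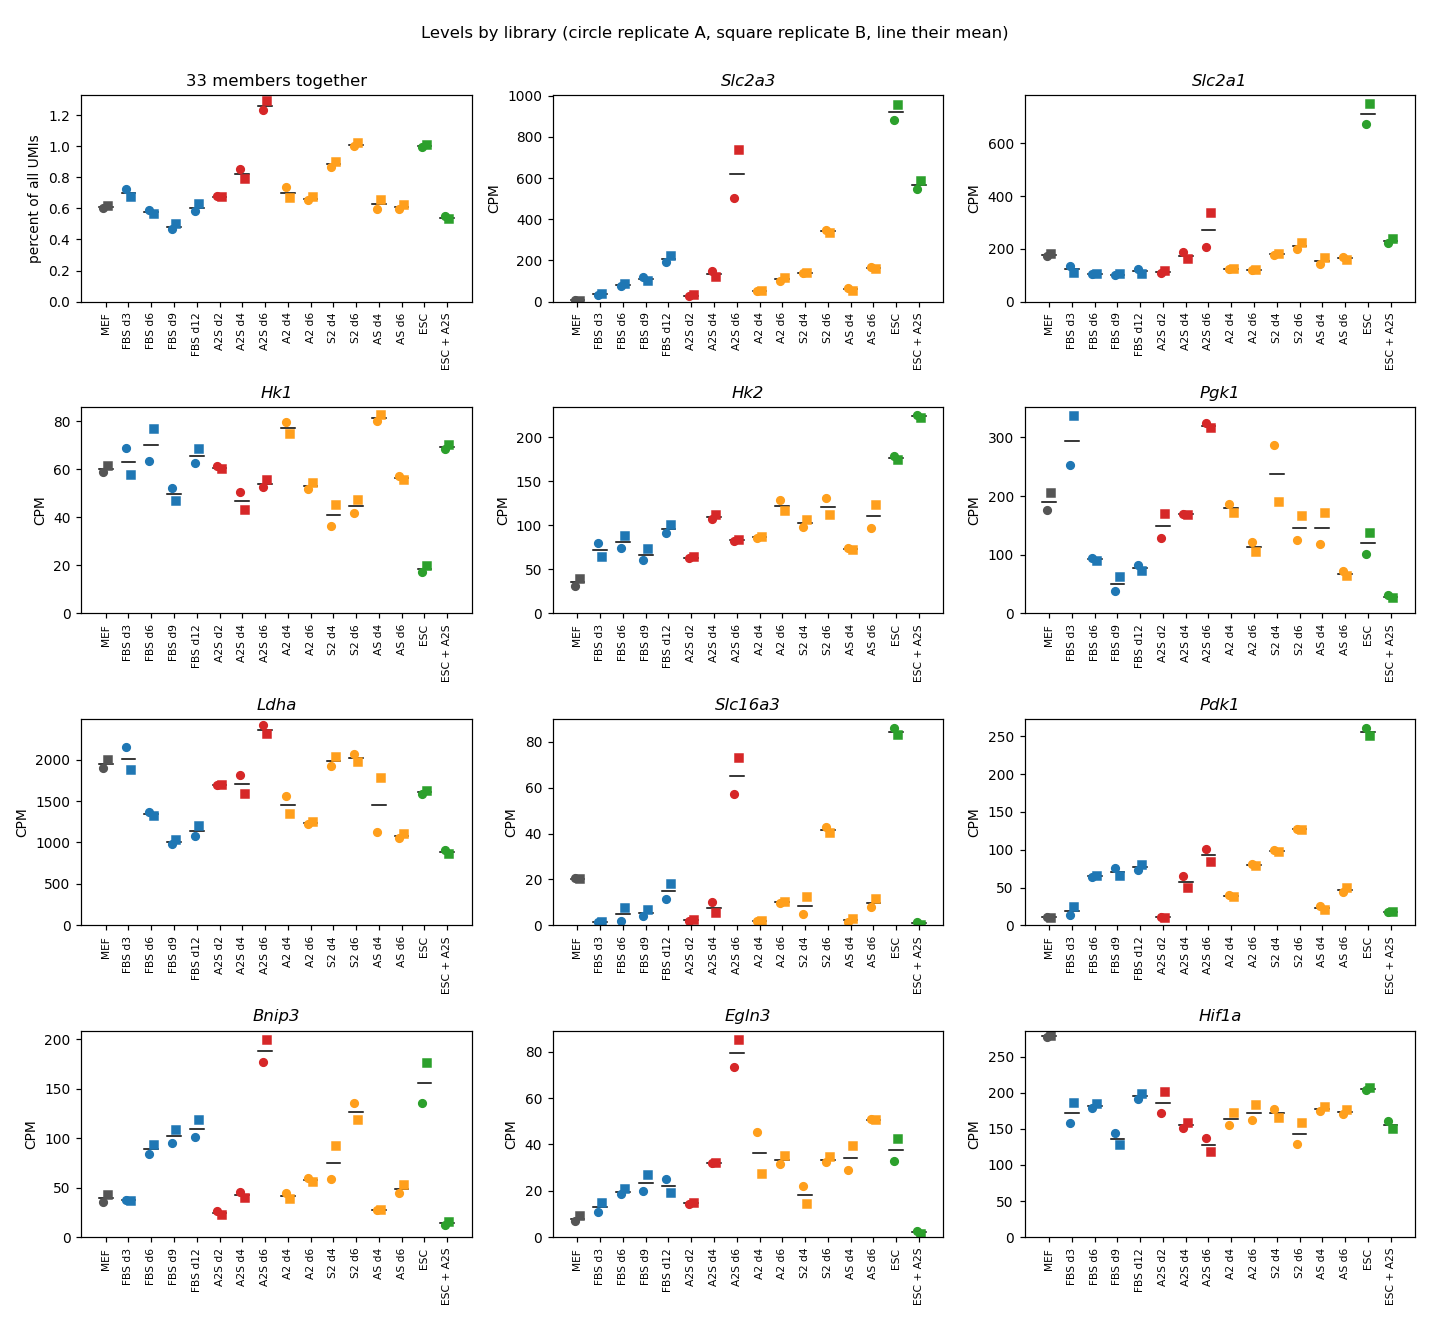
Levels in each library for the members together (percent of all UMIs) and for 11 members (CPM), by group; circles are replicate A, squares replicate B and lines their mean. The members' joint share was highest in A2S day 6, at 1.24% and 1.29%.

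ESCs and MEFs, the endpoints of reprogramming, differed in both directions, with a share of members called lower near that of all genes. 16 of 32 tested members were called higher and 11 lower, beside 35.6% and 36.4% of all genes tested, and the median member log2 fold change was 0.24 against 0.00 over all genes. Slc2a3, a high-affinity glucose transporter of embryonic and neural cells, stood at 5.95 and 5.07 CPM in MEFs and 881 and 956 in ESCs (log2 fold change 7.38 ± 0.20, adjusted p = 1.44e-24). Pdk1 stood at 11.2 and 10.2 CPM in MEFs and 261 and 250 in ESCs (4.58 ± 0.15, adjusted p = 4.47e-22), and the libraries of the 2 groups did not overlap for either gene. Among the hexokinases Hk2, the inducible form, was higher in ESCs (2.31 ± 0.13, adjusted p = 1.52e-16), while Hk1, the form of most tissues, was lower (-1.70 ± 0.15, adjusted p = 1.05e-11), so that Hk2 made up 35.0% and 38.9% of their UMIs in MEFs and 91.2% and 89.9% in ESCs. Slc2a3 made up 3.33% and 2.77% of the UMIs of both glucose transporters in MEFs and 56.7% and 56.0% in ESCs. For phosphofructokinase the share of Pfkl went from 28.3% and 26.2% to 49.6% and 53.2%. Slc16a3 made up 33.6% and 33.3% of the UMIs of both lactate transporters in MEFs and 30.8% and 30.9% in ESCs. Ldhb made up 1.58% and 1.36% of lactate dehydrogenase UMIs in MEFs and 7.91% and 7.36% in ESCs, and Aldoc 0.0436% and 0.268% of the UMIs of Aldoa and Aldoc in MEFs and 1.19% and 1.53% in ESCs. Slc2a1, Pfkl, Ldhb, Slc16a1, Slc16a3, Egln3, Bnip3, Ankrd37 and Aldoc were also higher, by 2.03 to 3.46 on the log2 scale for all but Bnip3 at 1.99 and Slc2a1 at 2.02. Hif1a was lower (-0.44 ± 0.11, adjusted p = 0.000436) and so was the growth factor gene Vegfa (-1.21 ± 0.15, adjusted p = 1.13e-08). With library totals in place of TMM factors, 17 members were called higher and 5 lower.

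Hk1 stood at 17.3 and 19.6 CPM in ESCs and 58.8 and 61.6 in MEFs (-1.70 ± 0.15). For Hk2 the levels were 179 and 175 CPM in ESCs and 31.6 and 39.3 in MEFs (2.31 ± 0.13). Aldoc, the brain aldolase, was measured at 19.4 and 23.7 CPM in ESCs, against 0.510 and 3.07 in MEFs (3.46 ± 0.46). Hk2 and Aldoc were higher in ESCs, and Hk1 was lower, with no overlap between the libraries of the groups. Pgk1 stood at 102 and 137 CPM in ESCs and 176 and 205 in MEFs (-0.67 ± 0.19). For Slc16a1 the levels were 193 and 186 CPM in ESCs and 40.6 and 40.5 in MEFs (2.23 ± 0.13). Pfkfb3, which makes an activator of phosphofructokinase, was measured at 9.26 and 17.8 CPM in ESCs, against 26.5 and 21.1 in MEFs (-0.79 ± 0.25). Slc16a1 was higher in ESCs, and Pgk1 and Pfkfb3 were lower, with no overlap between the libraries of the groups. Egln3 stood at 32.8 and 42.2 CPM in ESCs and 6.97 and 8.95 in MEFs (2.22 ± 0.23). For Vegfa, the angiogenic growth factor, the levels were 68.6 and 66.6 CPM in ESCs and 155 and 158 in MEFs (-1.21 ± 0.15). Ndrg1, a hypoxia-induced gene, was measured at 11.8 and 10.4 CPM in ESCs, against 24.8 and 17.9 in MEFs (-0.94 ± 0.31). Egln3 was higher in ESCs, and Vegfa and Ndrg1 were lower, with no overlap between the libraries of the groups. Ero1l, an oxidase of disulphide bond formation in the endoplasmic reticulum, stood at 26.5 and 26.3 CPM in ESCs and 46.6 and 50.9 in MEFs (-0.89 ± 0.18). Ero1l was lower in ESCs, with no overlap between the libraries of the groups. ESC against MEF also gave calls on the higher side for Slc2a1 (2.02), Gpi1 (0.38), Pfkl (2.03), Pfkm (0.78), Pfkp (0.36), Aldoa (0.43), Ldhb (2.2), Slc16a3 (2.05), Bnip3 (1.99) and Ankrd37 (2.37), and on the lower side for Eno2 (-1.72), Ldha (-0.28), Pfkfb4 (-2.51), Hif1a (-0.44) and Egln1 (-0.61). Tpi1, Gapdh, Pgam1, Eno3 and Pkm were not called in ESC against MEF. 21 of the 27 calls were kept when each library was left out in turn. Those lost were Pfkp (0.27), Ldha (-0.32), Pfkfb3 (-0.63) and Ndrg1 (-0.70) without MEF replicate A, Pfkp (0.23), Pgk1 (-0.49), Ldha (-0.27) and Pfkfb3 (-0.42) without ESC replicate A, Eno2 (-1.37), Ldha (-0.30) and Ndrg1 (-0.85) without ESC replicate B and Ldha (-0.25) without MEF replicate B.

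Beside ESC against MEF, fibroblast markers summed to 333 and 342 CPM in ESCs and 16496 and 15289 in MEFs (0 of 9 called higher and 9 lower), and pluripotency markers to 4841 and 4633 CPM in ESCs and 0.340 and 2.00 in MEFs (10 of 10 called higher and 0 lower). The sum of epithelial markers was 1146 and 1575 CPM in ESCs and 33.5 and 43.0 in MEFs (6 of 8 called higher and 1 lower), and that of cycling-cell markers 4849 and 4870 CPM in ESCs and 1658 and 1906 in MEFs (10 of 12 called higher and 0 lower). Macrophage markers came to 15.2 and 14.1 CPM in ESCs and 13.1 and 17.0 in MEFs (1 of 5 called higher and 1 lower), and the part of these lists was not tested.

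In the first days of reprogramming the shares of members called lay near those of all genes. On A2S day 2 against MEF, 6 of 32 tested members were called higher and 11 lower, beside 22.8% and 26.9% of all genes tested, and the median member log2 fold change was -0.24 against -0.01 over all genes. On FBS day 3 against MEF, 8 of 32 tested members were called higher and 6 lower, beside 18.2% and 22.5% of all genes tested, and the median member log2 fold change was 0.04 against -0.01 over all genes. Slc2a3 rose in both, to 25.6 and 30.8 CPM on A2S day 2 (2.37 ± 0.24, adjusted p = 6.69e-10) and 29.9 and 38.8 on FBS day 3 (2.64 ± 0.24, adjusted p = 1.39e-10). Hk2 rose as well (0.83 ± 0.13 and 1.01 ± 0.14), as did Slc16a1, which encodes the lactate and pyruvate transporter MCT1 (1.46 ± 0.13 and 1.43 ± 0.13). Slc16a3, which encodes the lactate exporter MCT4, fell from 20.6 and 20.2 CPM in MEFs to 1.85 and 2.47 (-3.20 ± 0.38, adjusted p = 2.55e-08) and 1.44 and 1.25 (-3.88 ± 0.45, adjusted p = 2.34e-08). Vegfa fell from 155 and 158 CPM to 42.8 and 38.9 and 50.7 and 58.3, and Hif1a from 278 and 278 to 172 and 201 and 158 and 186. Every MEF library was above every reprogramming library of these groups for these 3 genes. Both comparisons share the MEF libraries. Without FBS day 3 replicate B, 7 members were called. With library totals the split of calls became 10 higher and 7 lower on A2S day 2, and 14 and 3 on FBS day 3.

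Slc2a1, the widespread glucose transporter gene, stood at 109 and 115 CPM in A2S day 2 and 173 and 178 in MEFs (-0.65 ± 0.14). For Slc2a3 the levels were 25.6 and 30.8 CPM in A2S day 2 and 5.95 and 5.07 in MEFs (2.37 ± 0.24). Hk2 was measured at 62.6 and 63.8 CPM in A2S day 2, against 31.6 and 39.3 in MEFs (0.83 ± 0.13). Slc2a3 and Hk2 were higher in A2S day 2, and Slc2a1 was lower, with no overlap between the libraries of the groups. Gpi1, glucose-6-phosphate isomerase, stood at 381 and 339 CPM in A2S day 2 and 231 and 229.8 in MEFs (0.64 ± 0.11). For Pfkp, the platelet phosphofructokinase, the levels were 90.8 and 84.7 CPM in A2S day 2 and 43.8 and 49.1 in MEFs (0.91 ± 0.14). Pgam1 was measured at 8.97 and 16.9 CPM in A2S day 2, against 24.1 and 21.5 in MEFs (-0.80 ± 0.23). Gpi1 and Pfkp were higher in A2S day 2, and Pgam1 was lower, with no overlap between the libraries of the groups. Slc16a1 stood at 107 and 116 CPM in A2S day 2 and 40.6 and 40.5 in MEFs (1.46 ± 0.13). For Bnip3 the levels were 26.7 and 22.3 CPM in A2S day 2 and 35.5 and 43.0 in MEFs (-0.70 ± 0.18). Ndrg1 was measured at 11.6 and 9.67 CPM in A2S day 2, against 24.8 and 17.9 in MEFs (-0.999 ± 0.28). Slc16a1 was higher in A2S day 2, and Bnip3 and Ndrg1 were lower, with no overlap between the libraries of the groups. A2S day 2 against MEF also gave calls on the higher side for Egln3 (0.85), and on the lower side for Aldoa (-0.31), Gapdh (-0.48), Eno3 (-1.28), Pfkfb4 (-1.18) and Hif1a (-0.58). Hk1, Pfkl, Pfkm, Aldoc, Tpi1, Pgk1, Eno2, Pkm, Ldha, Ldhb, Pdk1, Pfkfb3, Egln1, Ankrd37 and Ero1l were not called in A2S day 2 against MEF. 11 of the 17 calls were kept when each library was left out in turn. Those lost were Aldoa (-0.17), Pfkfb4 (-0.93) and Ndrg1 (-0.86) without A2S day 2 replicate B, Aldoa (-0.29), Gapdh (-0.46), Pfkfb4 (-1.17), Egln3 (0.70) and Ndrg1 (-0.76) without MEF replicate A, Aldoa (-0.32) and Pfkfb4 (-1.19) without MEF replicate B and Gapdh (-0.33) and Pgam1 (-0.43) without A2S day 2 replicate A.

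The markers that moved with A2S day 2 against MEF were not tested for their part in it. Fibroblast genes came to 3376 and 3580 CPM in A2S day 2 and 16496 and 15289 in MEFs (0 of 9 called higher and 9 lower), and pluripotency genes to 2.38 and 4.72 CPM in A2S day 2 and 0.340 and 2.00 in MEFs (1 of 10 called higher and 0 lower). Epithelial genes came to 148 and 108 CPM in A2S day 2 and 33.5 and 43.0 in MEFs (3 of 8 called higher and 0 lower), and genes of cycling cells to 3401 and 3165 CPM in A2S day 2 and 1658 and 1906 in MEFs (10 of 12 called higher and 0 lower). Macrophage genes stood at 23.2 and 40.0 CPM in A2S day 2 and 13.1 and 17.0 in MEFs (3 of 5 called higher and 0 lower).

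Slc2a1 stood at 136 and 109 CPM in FBS day 3 and 173 and 178 in MEFs (-0.52 ± 0.14). For Hk2 the levels were 80.0 and 63.6 CPM in FBS day 3 and 31.6 and 39.3 in MEFs (1.01 ± 0.14). Gpi1 was measured at 348 and 309 CPM in FBS day 3, against 231 and 229.8 in MEFs (0.51 ± 0.11). Hk2 and Gpi1 were higher in FBS day 3, and Slc2a1 was lower, with no overlap between the libraries of the groups. Pgk1 stood at 253 and 337 CPM in FBS day 3 and 176 and 205 in MEFs (0.63 ± 0.17). For Pkm, pyruvate kinase M, the levels were 1333 and 1236 CPM in FBS day 3 and 1641 and 1614 in MEFs (-0.34 ± 0.11). Slc16a1 was measured at 112 and 107 CPM in FBS day 3, against 40.6 and 40.5 in MEFs (1.43 ± 0.13). Pgk1 and Slc16a1 were higher in FBS day 3, and Pkm was lower, with no overlap between the libraries of the groups. Ero1l stood at 39.2 and 28.8 CPM in FBS day 3 and 46.6 and 50.9 in MEFs (-0.52 ± 0.16). Ero1l was lower in FBS day 3, with no overlap between the libraries of the groups. FBS day 3 against MEF also gave calls on the higher side for Pdk1 (0.84), Egln3 (0.67) and Ankrd37 (1.002). Hk1, Pfkl, Pfkm, Pfkp, Aldoa, Aldoc, Tpi1, Gapdh, Pgam1, Eno2, Eno3, Ldha, Ldhb, Pfkfb3, Pfkfb4, Egln1, Bnip3 and Ndrg1 were not called in FBS day 3 against MEF. 7 of the 14 calls were kept when each library was left out in turn. Those lost were Slc2a1 (-0.37), Pgk1 (0.41), Pkm (-0.29), Pdk1 (0.41), Egln3 (0.44), Ankrd37 (0.90) and Ero1l (-0.32) without FBS day 3 replicate B, Pgk1 (0.52), Pkm (-0.33), Egln3 (0.51) and Ankrd37 (0.85) without MEF replicate A, Ankrd37 (1.21) and Ero1l (-0.45) without MEF replicate B and Ankrd37 (1.10) without FBS day 3 replicate A.

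In the same libraries as FBS day 3 against MEF, summed fibroblast markers stood at 6266 and 6522 CPM in FBS day 3 and 16496 and 15289 in MEFs (0 of 9 called higher and 8 lower), and pluripotency markers at 1.73 and 1.57 CPM in FBS day 3 and 0.340 and 2.00 in MEFs (0 of 10 called higher and 0 lower). Summed epithelial markers stood at 311 and 303 CPM in FBS day 3 and 33.5 and 43.0 in MEFs (3 of 8 called higher and 0 lower), and cycling-cell markers at 2978 and 3317 CPM in FBS day 3 and 1658 and 1906 in MEFs (11 of 12 called higher and 0 lower). For macrophage markers the sum was 20.2 and 20.7 CPM in FBS day 3 and 13.1 and 17.0 in MEFs (1 of 5 called higher and 1 lower), and none of these lists was tested for its part.

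Between days 2 and 6 of A2S most tested members rose, though not at every step of the pathway. Pgam1 was not called. The column Eno1b, which is not a member, stood at 326.5 and 254.7 CPM on day 2 and 202.6 and 192.2 on day 6. 23 of 32 tested members were called higher and 1 lower, beside 26.2% and 24.1% of all genes tested, and the median member log2 fold change was 1.14 against 0.04 over all genes. Slc2a3 went from 25.6 and 30.8 CPM on day 2 through 148 and 119 on day 4 to 503 and 736 on day 6 (4.45 ± 0.17, adjusted p = 1.13e-19). Its 2 day 6 libraries differed, B being the higher, but both were above all earlier ones. Of the phosphofructokinases, which catalyse the committed step, Pfkl rose from 27.7 and 25.6 to 69.5 and 79.1 CPM (1.48 ± 0.18, adjusted p = 5.93e-08) and Pfkm from 22.7 and 22.5 to 50.8 and 53.9 (1.21 ± 0.15, adjusted p = 6.94e-08). Among the later steps, Pgk1, encoding the first ATP-forming enzyme, stood at 129 and 169 CPM on day 2, 169 and 168 on day 4 and 324 and 316 on day 6 (1.10 ± 0.18, adjusted p = 5.62e-06). Its 2 day 6 libraries lay well above both earlier days. Slc16a3 recovered from 1.85 and 2.47 to 57.4 and 73.2 CPM (4.88 ± 0.35, adjusted p = 8.27e-13), and Pdk1 rose from 11.1 and 9.89 to 101 and 84.3 (3.15 ± 0.18, adjusted p = 2.07e-15). Among HIF targets, Bnip3, encoding a mitophagy receptor, went from 26.7 and 22.3 CPM on day 2 to 45.8 and 39.9 on day 4 and 178 and 199.7 on day 6 (2.95 ± 0.17, adjusted p = 3.11e-15). Egln3, encoding the prolyl hydroxylase that HIF induces, went from 14.3 and 14.8 to 32.1 and 32.03 and 73.6 and 85.0 (2.44 ± 0.21, adjusted p = 2.77e-11). Hif1a itself fell (-0.55 ± 0.11, adjusted p = 0.000118), the only member called lower.

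Aldoc stood at 63.6 and 62.4 CPM in A2S day 6 and 1.32 and 1.80 in A2S day 2 (5.29 ± 0.44). For Hif1a the levels were 138 and 118 CPM in A2S day 6 and 172 and 201 in A2S day 2 (-0.55 ± 0.11). Ankrd37, a HIF target of unclear function, was measured at 19.6 and 33.01 CPM in A2S day 6, against 1.85 and 2.47 in A2S day 2 (3.57 ± 0.36). Aldoc and Ankrd37 were higher in A2S day 6, and Hif1a was lower, with no overlap between the libraries of the groups. A2S day 6 against A2S day 2 also gave calls on the higher side for Slc2a1 (1.27), Hk2 (0.39), Gpi1 (0.52), Pfkl (1.48), Pfkm (1.21), Pfkp (0.47), Aldoa (1.31), Tpi1 (0.98), Gapdh (1.22), Pgk1 (1.10), Eno2 (2.77), Pkm (0.53), Ldha (0.48), Ldhb (1.98), Pfkfb3 (1.17), Egln3 (2.44) and Ndrg1 (1.73). Hk1, Pgam1, Eno3, Slc16a1, Pfkfb4, Egln1, Vegfa and Ero1l were not called in A2S day 6 against A2S day 2. 22 of the 24 calls were kept when each library was left out in turn. Those lost were Hk2 (0.38) without A2S day 2 replicate A, Hk2 (0.40) without A2S day 2 replicate B, Hk2 (0.40) and Pfkp (0.29) without A2S day 6 replicate A and Hk2 (0.38) without A2S day 6 replicate B.

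Beside A2S day 6 against A2S day 2, fibroblast markers summed to 1653 and 1425 CPM in A2S day 6 and 3376 and 3580 in A2S day 2 (0 of 9 called higher and 6 lower), and pluripotency markers to 943 and 1068 CPM in A2S day 6 and 2.38 and 4.72 in A2S day 2 (10 of 10 called higher and 0 lower). The sum of epithelial markers was 845 and 779 CPM in A2S day 6 and 148 and 108 in A2S day 2 (7 of 8 called higher and 1 lower), and that of cycling-cell markers 2728 and 2725 CPM in A2S day 6 and 3401 and 3165 in A2S day 2 (2 of 12 called higher and 4 lower). Macrophage markers came to 13.7 and 26.1 CPM in A2S day 6 and 23.2 and 40.0 in A2S day 2 (0 of 5 called higher and 4 lower), and the part of these lists was not tested.

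Serum reprogramming from day 3 to day 12 moved the members in both directions, with a share called lower near that of all genes. 12 of 32 tested members were called higher and 7 lower, beside 22.8% and 22.9% of all genes tested, and the median member log2 fold change was 0.04 against 0.00 over all genes. Slc2a3 rose from 29.9 and 38.8 to 192 and 223 CPM (2.60 ± 0.17, adjusted p = 2.36e-13), Pdk1 from 14.1 and 24.4 to 73.7 and 80.2 (2.01 ± 0.18, adjusted p = 1.13e-10) and Bnip3 from 37.7 and 37.0 to 101 and 119 (1.56 ± 0.18, adjusted p = 1.57e-08). Aldoc, the aldolase of brain, rose from 1.44 and 1.25 to 109 and 82.7 CPM (6.10 ± 0.47, adjusted p = 6.06e-12), and Ndrg1, a hypoxia-induced gene, from 20.4 and 13.2 to 68.0 and 67.1 (2.00 ± 0.27, adjusted p = 4.83e-07), its highest level in any group. Of the 7 tested members from Tpi1 to Pkm, 4 were called lower and 1 higher (Eno2). Pgk1 went from 253 and 337 to 82.2 and 72.6 CPM (-1.93 ± 0.21, adjusted p = 4.8e-09), and Gapdh was lower (-1.12 ± 0.17, adjusted p = 2.69e-06), as was Ldha of the lactate group (-0.82 ± 0.12, adjusted p = 2.1e-06).

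Gapdh, glyceraldehyde-3-phosphate dehydrogenase, stood at 221 and 235 CPM in FBS day 12 and 483 and 506 in FBS day 3 (-1.12 ± 0.17). For Pgam1 the levels were 6.85 and 6.05 CPM in FBS day 12 and 17.0 and 28.8 in FBS day 3 (-1.82 ± 0.32). Eno2, the neuronal enolase, was measured at 31.98 and 38.3 CPM in FBS day 12, against 4.89 and 2.82 in FBS day 3 (3.17 ± 0.39). Eno2 was higher in FBS day 12, and Gapdh and Pgam1 were lower, with no overlap between the libraries of the groups. Ldha, the muscle lactate dehydrogenase, stood at 1083 and 1194 CPM in FBS day 12 and 2150 and 1869 in FBS day 3 (-0.82 ± 0.12). For Ldhb, the heart lactate dehydrogenase, the levels were 82.8 and 93.3 CPM in FBS day 12 and 30.5 and 28.5 in FBS day 3 (1.58 ± 0.19). Slc16a1 was measured at 61.7 and 73.1 CPM in FBS day 12, against 112 and 107 in FBS day 3 (-0.69 ± 0.15). Ldhb was higher in FBS day 12, and Ldha and Slc16a1 were lower, with no overlap between the libraries of the groups. Vegfa stood at 38.3 and 32.3 CPM in FBS day 12 and 50.7 and 58.3 in FBS day 3 (-0.63 ± 0.19). Vegfa was lower in FBS day 12, with no overlap between the libraries of the groups. FBS day 12 against FBS day 3 also gave calls on the higher side for Hk2 (0.42), Gpi1 (0.27), Pfkl (0.84), Slc16a3 (3.43), Egln3 (0.78) and Bnip3 (1.56), and on the lower side for Pkm (-0.29). Slc2a1, Hk1, Pfkm, Pfkp, Aldoa, Tpi1, Eno3, Pfkfb3, Pfkfb4, Hif1a, Egln1, Ankrd37 and Ero1l were not called in FBS day 12 against FBS day 3. 14 of the 19 calls were kept when each library was left out in turn. Those lost were Hk2 (0.26), Gpi1 (0.18) and Vegfa (-0.54) without FBS day 3 replicate B, Hk2 (0.34), Gpi1 (0.26) and Vegfa (-0.51) without FBS day 12 replicate B, Gpi1 (0.28), Pkm (-0.24) and Egln3 (0.58) without FBS day 12 replicate A and Pkm (-0.24) and Egln3 (0.57) without FBS day 3 replicate A.

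The markers that moved with FBS day 12 against FBS day 3 were not tested for their part in it. Fibroblast genes came to 8780 and 7677 CPM in FBS day 12 and 6266 and 6522 in FBS day 3 (7 of 9 called higher and 1 lower), and pluripotency genes to 459.7 and 559.9 CPM in FBS day 12 and 1.73 and 1.57 in FBS day 3 (10 of 10 called higher and 0 lower). Epithelial genes came to 240.4 and 256 CPM in FBS day 12 and 311 and 303 in FBS day 3 (5 of 8 called higher and 2 lower), and genes of cycling cells to 1276 and 1447 CPM in FBS day 12 and 2978 and 3317 in FBS day 3 (0 of 12 called higher and 11 lower). Macrophage genes stood at 12.6 and 173 CPM in FBS day 12 and 20.2 and 20.7 in FBS day 3 (2 of 5 called higher and 0 lower).

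**Figure D2:**
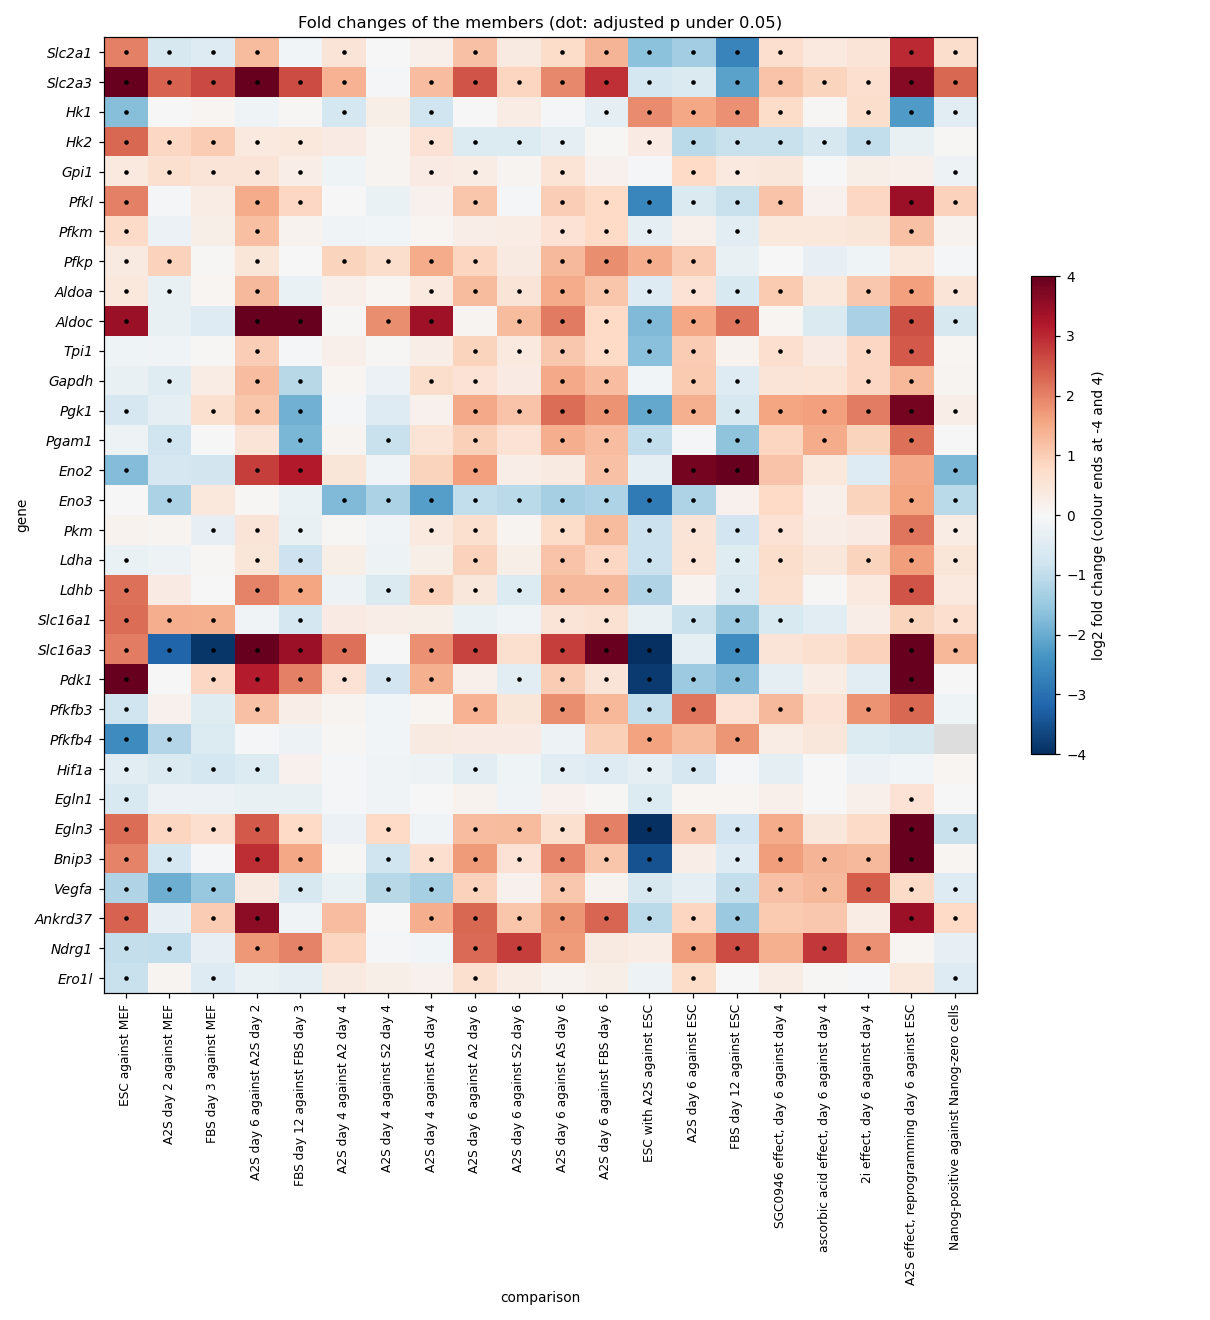
Log2 fold changes of the 32 tested members (rows) in each comparison (columns), with a dot where adjusted p was under 0.05; grey was not tested. The A2S day 6 columns against A2, AS and FBS are mostly red, and the column of ESC with A2S against ESC is mostly blue, with 22 of 32 members called lower.

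On day 6 each medium that lacked a component was set against A2S, which gives how library sums differed with and without it when the others were present. The groups also differed in cell type markers, given below, whose part was not tested. These comparisons share the A2S libraries. More members were called against the media without SGC0946 or 2i than against the medium without ascorbic acid, and so were more of all genes. Against A2, 22 of 32 tested members were called higher and 3 lower, beside 14.8% and 15.9% of all genes tested, and the median member log2 fold change was 0.88 against 0.01 over all genes. Against AS, 24 of 32 tested members were called higher and 3 lower, beside 19.2% and 20.0% of all genes tested, and the median member log2 fold change was 1.04 against 0.02 over all genes. Against S2, 9 of 32 tested members were called higher and 4 lower, beside 8.17% and 7.63% of all genes tested, and the median member log2 fold change was 0.32 against 0.00 over all genes. Pgk1 stood at 324 and 316 CPM in A2S, 122 and 104 in A2, 125 and 167 in S2 and 72.5 and 63.5 in AS, with no overlap between A2S and any of the 3. Its log2 fold changes were 1.501 ± 0.19, adjusted p = 1.54e-07 against A2, 1.14 ± 0.18, adjusted p = 4.65e-05 against S2 and 2.23 ± 0.19, adjusted p = 1.09e-10 against AS. Slc2a3 stood at 102 and 113 CPM in A2, 348 and 334 in S2 and 168 and 160.4 in AS, against 503 and 736 in A2S, and was called higher in A2S against each (2.53 ± 0.14, 0.86 ± 0.13 and 1.92 ± 0.14). Slc16a3 was high in both media that hold SGC0946 with 2i, at 57.4 and 73.2 CPM in A2S and 43.1 and 40.3 in S2, and low in A2 (9.81 and 10.1) and AS (8.05 and 11.4). Against S2 its difference missed the threshold (0.64 ± 0.24, adjusted p = 0.0654, interval 0.17 to 1.12). Ndrg1 stood at 29.0 and 41.5 CPM in A2S and 6.06 and 3.95 in S2 (2.78 ± 0.35, adjusted p = 1.26e-06), the member with the largest difference for ascorbic acid. Egln3 was at 73.6 and 85.0 in A2S, 31.4 and 35.1 in A2 and 32.2 and 34.4 in S2, and at 50.9 and 50.4 in AS. A few members ran the other way. Hk2 was lower in A2S than in A2 (-0.56 ± 0.13, adjusted p = 0.00101), S2 (-0.55 ± 0.13, adjusted p = 0.00282) and AS (-0.41 ± 0.13, adjusted p = 0.0123), and so was Eno3, the muscle enolase, at 9.66 and 7.19 CPM in A2S. Ldhb, the heart form of lactate dehydrogenase, was highest of these 4 media in S2, at 225 and 196 CPM against 139 and 150.3 in A2S (-0.54 ± 0.15, adjusted p = 0.00968). Without S2 day 6 replicate A, 6 members were called against S2.

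Hk2 stood at 82.3 and 83.7 CPM in A2S day 6 and 129 and 116 in A2 day 6 (-0.56 ± 0.13). For Eno2 the levels were 29.6 and 27.1 CPM in A2S day 6 and 6.54 and 11.4 in A2 day 6 (1.63 ± 0.32). Hif1a was measured at 138 and 118 CPM in A2S day 6, against 162 and 183 in A2 day 6 (-0.43 ± 0.11). Eno2 was higher in A2S day 6, and Hk2 and Hif1a were lower, with no overlap between the libraries of the groups. Bnip3 stood at 178 and 199.7 CPM in A2S day 6 and 59.9 and 55.8 in A2 day 6 (1.71 ± 0.15). For Ankrd37 the levels were 19.6 and 33.01 CPM in A2S day 6 and 6.21 and 4.63 in A2 day 6 (2.28 ± 0.33). Ndrg1 was measured at 29.0 and 41.5 CPM in A2S day 6, against 7.20 and 7.35 in A2 day 6 (2.27 ± 0.32). Bnip3, Ankrd37 and Ndrg1 were higher in A2S day 6, with no overlap between the libraries of the groups. A2S day 6 against A2 day 6 also gave calls on the higher side for Slc2a1 (1.18), Gpi1 (0.29), Pfkl (1.12), Pfkp (0.87), Aldoa (1.27), Tpi1 (0.90), Gapdh (0.58), Pgk1 (1.501), Pgam1 (0.96), Pkm (0.63), Ldha (0.93), Ldhb (0.44), Pfkfb3 (1.39), Egln3 (1.25), Vegfa (0.93) and Ero1l (0.63), and on the lower side for Eno3 (-0.98). Hk1, Pfkm, Aldoc, Slc16a1, Pdk1, Pfkfb4 and Egln1 were not called in A2S day 6 against A2 day 6. 18 of the 25 calls were kept when each library was left out in turn. Those lost were Gpi1 (0.33) and Ldhb (0.49) without A2S day 6 replicate A, Gpi1 (0.24), Gapdh (0.47), Pgam1 (0.90), Eno3 (-0.79), Ldhb (0.38), Hif1a (-0.33) and Ero1l (0.48) without A2S day 6 replicate B, Gpi1 (0.23), Gapdh (0.46) and Ldhb (0.44) without A2 day 6 replicate A and Gpi1 (0.35), Pgam1 (0.94), Eno3 (-0.70), Ldhb (0.43), Hif1a (-0.34) and Ero1l (0.46) without A2 day 6 replicate B.

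In the same libraries as A2S day 6 against A2 day 6, summed fibroblast markers stood at 1653 and 1425 CPM in A2S day 6 and 3881 and 3771 in A2 day 6 (0 of 9 called higher and 8 lower), and pluripotency markers at 943 and 1068 CPM in A2S day 6 and 96.8 and 92.0 in A2 day 6 (10 of 10 called higher and 0 lower). Summed epithelial markers stood at 845 and 779 CPM in A2S day 6 and 163 and 149 in A2 day 6 (7 of 8 called higher and 0 lower), and cycling-cell markers at 2728 and 2725 CPM in A2S day 6 and 1845 and 1881 in A2 day 6 (8 of 12 called higher and 0 lower). For macrophage markers the sum was 13.7 and 26.1 CPM in A2S day 6 and 9.16 and 12.0 in A2 day 6 (0 of 5 called higher and 0 lower), and none of these lists was tested for its part.

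Hk2 stood at 82.3 and 83.7 CPM in A2S day 6 and 97.1 and 124 in AS day 6 (-0.41 ± 0.13). For Aldoc the levels were 63.6 and 62.4 CPM in A2S day 6 and 14.5 and 15.1 in AS day 6 (2.09 ± 0.31). Eno3 was measured at 9.66 and 7.19 CPM in A2S day 6, against 20.3 and 22.5 in AS day 6 (-1.33 ± 0.31). Aldoc was higher in A2S day 6, and Hk2 and Eno3 were lower, with no overlap between the libraries of the groups. Pfkfb3 stood at 53.6 and 66.3 CPM in A2S day 6 and 19.2 and 13.5 in AS day 6 (1.85 ± 0.22). For Hif1a the levels were 138 and 118 CPM in A2S day 6 and 171 and 177 in AS day 6 (-0.44 ± 0.11). Bnip3 was measured at 178 and 199.7 CPM in A2S day 6, against 44.4 and 52.8 in AS day 6 (1.964 ± 0.16). Pfkfb3 and Bnip3 were higher in A2S day 6, and Hif1a was lower, with no overlap between the libraries of the groups. A2S day 6 against AS day 6 also gave calls on the higher side for Slc2a1 (0.72), Gpi1 (0.56), Pfkl (0.99), Pfkm (0.58), Pfkp (1.30), Aldoa (1.48), Tpi1 (1.08), Gapdh (1.51), Pgam1 (1.45), Pkm (0.72), Ldha (1.13), Ldhb (1.29), Slc16a1 (0.52), Pdk1 (1.001), Egln3 (0.65), Vegfa (1.08), Ankrd37 (1.75) and Ndrg1 (1.70). Hk1, Eno2, Pfkfb4, Egln1 and Ero1l were not called in A2S day 6 against AS day 6. 22 of the 27 calls were kept when each library was left out in turn. Those lost were Slc2a1 (0.34), Hk2 (-0.42), Hif1a (-0.34) and Egln3 (0.54) without A2S day 6 replicate B, Hk2 (-0.40) without A2S day 6 replicate A, Hk2 (-0.23) without AS day 6 replicate B and Slc16a1 (0.30) without AS day 6 replicate A.

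Beside A2S day 6 against AS day 6, fibroblast markers summed to 1653 and 1425 CPM in A2S day 6 and 4871 and 5105 in AS day 6 (0 of 9 called higher and 8 lower), and pluripotency markers to 943 and 1068 CPM in A2S day 6 and 129 and 209 in AS day 6 (9 of 10 called higher and 0 lower). The sum of epithelial markers was 845 and 779 CPM in A2S day 6 and 355 and 416 in AS day 6 (4 of 8 called higher and 2 lower), and that of cycling-cell markers 2728 and 2725 CPM in A2S day 6 and 2044 and 2018 in AS day 6 (7 of 12 called higher and 0 lower). Macrophage markers came to 13.7 and 26.1 CPM in A2S day 6 and 13.5 and 16.8 in AS day 6 (0 of 5 called higher and 0 lower), and the part of these lists was not tested.

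Slc2a3 stood at 503 and 736 CPM in A2S day 6 and 348 and 334 in S2 day 6 (0.86 ± 0.13). For Hk2 the levels were 82.3 and 83.7 CPM in A2S day 6 and 131 and 112 in S2 day 6 (-0.55 ± 0.13). Aldoc was measured at 63.6 and 62.4 CPM in A2S day 6, against 20.1 and 32.8 in S2 day 6 (1.27 ± 0.30). Slc2a3 and Aldoc were higher in A2S day 6, and Hk2 was lower, with no overlap between the libraries of the groups. Pgk1 stood at 324 and 316 CPM in A2S day 6 and 125 and 167 in S2 day 6 (1.14 ± 0.18). For Ldhb the levels were 139 and 150.3 CPM in A2S day 6 and 225 and 196 in S2 day 6 (-0.54 ± 0.15). Pdk1, which inhibits pyruvate dehydrogenase, was measured at 101 and 84.3 CPM in A2S day 6, against 128 and 126 in S2 day 6 (-0.45 ± 0.13). Pgk1 was higher in A2S day 6, and Ldhb and Pdk1 were lower, with no overlap between the libraries of the groups. Egln3 stood at 73.6 and 85.0 CPM in A2S day 6 and 32.2 and 34.4 in S2 day 6 (1.25 ± 0.20). For Ankrd37 the levels were 19.6 and 33.01 CPM in A2S day 6 and 10.9 and 13.8 in S2 day 6 (1.10 ± 0.30). Ndrg1 was measured at 29.0 and 41.5 CPM in A2S day 6, against 6.06 and 3.95 in S2 day 6 (2.78 ± 0.35). Egln3, Ankrd37 and Ndrg1 were higher in A2S day 6, with no overlap between the libraries of the groups. A2S day 6 against S2 day 6 also gave calls on the higher side for Aldoa (0.51), Tpi1 (0.39) and Bnip3 (0.57), and on the lower side for Eno3 (-1.07). Slc2a1, Hk1, Gpi1, Pfkl, Pfkm, Pfkp, Gapdh, Pgam1, Eno2, Pkm, Ldha, Slc16a1, Slc16a3, Pfkfb3, Pfkfb4, Hif1a, Egln1, Vegfa and Ero1l were not called in A2S day 6 against S2 day 6. 5 of the 13 calls were kept when each library was left out in turn. Those lost were Hk2 (-0.43), Aldoc (0.94), Tpi1 (0.33), Eno3 (-0.90), Ldhb (-0.44), Pdk1 (-0.45) and Ankrd37 (0.92) without S2 day 6 replicate A, Tpi1 (0.37), Eno3 (-0.88), Pdk1 (-0.33), Bnip3 (0.48) and Ankrd37 (0.68) without A2S day 6 replicate B, Eno3 (-1.30) and Ldhb (-0.49) without A2S day 6 replicate A and Pdk1 (-0.46) and Bnip3 (0.47) without S2 day 6 replicate B.

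The markers that moved with A2S day 6 against S2 day 6 were not tested for their part in it. Fibroblast genes came to 1653 and 1425 CPM in A2S day 6 and 1979 and 1677 in S2 day 6 (1 of 9 called higher and 2 lower), and pluripotency genes to 943 and 1068 CPM in A2S day 6 and 222 and 209 in S2 day 6 (9 of 10 called higher and 0 lower). Epithelial genes came to 845 and 779 CPM in A2S day 6 and 582 and 522 in S2 day 6 (4 of 8 called higher and 2 lower), and genes of cycling cells to 2728 and 2725 CPM in A2S day 6 and 2139 and 2236 in S2 day 6 (2 of 12 called higher and 0 lower). Macrophage genes stood at 13.7 and 26.1 CPM in A2S day 6 and 12.4 and 6.72 in S2 day 6 (0 of 5 called higher and 0 lower).

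On day 4 the same comparisons gave fewer calls. Against A2, 5 of 32 tested members were called higher and 2 lower, beside 6.46% and 7.98% of all genes tested, and the median member log2 fold change was 0.08 against 0.00 over all genes. Against S2, 3 of 32 tested members were called higher and 6 lower, beside 3.24% and 3.33% of all genes tested, and the median member log2 fold change was -0.11 against 0.00 over all genes. Against AS, 13 of 32 tested members were called higher and 3 lower, beside 13.6% and 16.3% of all genes tested, and the median member log2 fold change was 0.29 against 0.00 over all genes. Slc2a3 stood at 148 and 119 CPM in A2S and 141 and 137 in S2, but 49.5 and 53.6 in A2 (1.40 ± 0.16, adjusted p = 2.74e-07) and 67.5 and 49.8 in AS (1.25 ± 0.16, adjusted p = 5.11e-07). Pfkp, the platelet phosphofructokinase, was higher in A2S than in each (0.89 ± 0.15 against A2, 0.72 ± 0.15 against S2 and 1.48 ± 0.15 against AS), and Hk1 was lower than in A2 (-0.71 ± 0.13, adjusted p = 0.000195) and AS (-0.78 ± 0.13, adjusted p = 1.96e-05). Bnip3 was not called against A2, at 45.8 and 39.9 CPM in A2S and 45.1 and 38.6 in A2 (0.04 ± 0.19, adjusted p = 0.964, interval -0.33 to 0.40). Pgk1 was likewise not called against any of the 3 media. Leaving out 1 library moved these counts. Against A2, 4 members were called without A2S day 4 replicate A or without A2 day 4 replicate A, and against S2, 4 without either A2S day 4 library and 3 without S2 day 4 replicate B.

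Slc2a1 stood at 189 and 159.6 CPM in A2S day 4 and 125 and 122 in A2 day 4 (0.51 ± 0.15). For Hk1 the levels were 50.4 and 43.1 CPM in A2S day 4 and 80.0 and 74.6 in A2 day 4 (-0.71 ± 0.13). Pfkp was measured at 110 and 119 CPM in A2S day 4, against 57.5 and 66.9 in A2 day 4 (0.89 ± 0.15). Slc2a1 and Pfkp were higher in A2S day 4, and Hk1 was lower, with no overlap between the libraries of the groups. Eno3 stood at 7.82 and 9.45 CPM in A2S day 4 and 32.1 and 24.9 in A2 day 4 (-1.78 ± 0.31). For Pdk1 the levels were 64.7 and 49.4 CPM in A2S day 4 and 39.9 and 37.3 in A2 day 4 (0.59 ± 0.16). Pdk1 was higher in A2S day 4, and Eno3 was lower, with no overlap between the libraries of the groups. A2S day 4 against A2 day 4 also gave calls on the higher side for Slc16a3 (2.203). Hk2, Gpi1, Pfkl, Pfkm, Aldoa, Aldoc, Tpi1, Gapdh, Pgk1, Pgam1, Eno2, Pkm, Ldha, Ldhb, Slc16a1, Pfkfb3, Pfkfb4, Hif1a, Egln1, Egln3, Bnip3, Vegfa, Ankrd37, Ndrg1 and Ero1l were not called in A2S day 4 against A2 day 4. 4 of the 7 calls were kept when each library was left out in turn. Those lost were Slc2a1 (0.37), Slc16a3 (1.53) and Pdk1 (0.35) without A2S day 4 replicate A, Slc2a1 (0.53), Slc16a3 (2.27) and Pdk1 (0.65) without A2 day 4 replicate A and Slc2a1 (0.49) and Pdk1 (0.55) without A2 day 4 replicate B.

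In the same libraries as A2S day 4 against A2 day 4, summed fibroblast markers stood at 1802 and 1930 CPM in A2S day 4 and 3464 and 3432 in A2 day 4 (0 of 9 called higher and 4 lower), and pluripotency markers at 124 and 132 CPM in A2S day 4 and 26.3 and 38.2 in A2 day 4 (4 of 10 called higher and 0 lower). Summed epithelial markers stood at 394 and 279.9 CPM in A2S day 4 and 221 and 203 in A2 day 4 (4 of 8 called higher and 1 lower), and cycling-cell markers at 2636 and 2785 CPM in A2S day 4 and 2071 and 2542 in A2 day 4 (1 of 12 called higher and 0 lower). For macrophage markers the sum was 17.0 and 9.98 CPM in A2S day 4 and 11.9 and 9.86 in A2 day 4 (0 of 5 called higher and 0 lower), and none of these lists was tested for its part.

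Pfkp stood at 110 and 119 CPM in A2S day 4 and 72.4 and 66.0 in S2 day 4 (0.72 ± 0.15). For Aldoc the levels were 27.5 and 20.0 CPM in A2S day 4 and 9.31 and 3.69 in S2 day 4 (1.86 ± 0.43). Pgam1 was measured at 17.0 and 15.8 CPM in A2S day 4, against 31.0 and 30.4 in S2 day 4 (-0.90 ± 0.25). Pfkp and Aldoc were higher in A2S day 4, and Pgam1 was lower, with no overlap between the libraries of the groups. Eno3 stood at 7.82 and 9.45 CPM in A2S day 4 and 20.7 and 19.7 in S2 day 4 (-1.26 ± 0.34). For Ldhb the levels were 78.7 and 75.1 CPM in A2S day 4 and 109.6 and 121 in S2 day 4 (-0.58 ± 0.17). Pdk1 was measured at 64.7 and 49.4 CPM in A2S day 4, against 99.6 and 96.8 in S2 day 4 (-0.75 ± 0.15). Eno3, Ldhb and Pdk1 were lower in A2S day 4, with no overlap between the libraries of the groups. Egln3 stood at 32.1 and 32.03 CPM in A2S day 4 and 22.1 and 14.4 in S2 day 4 (0.80 ± 0.24). For Bnip3 the levels were 45.8 and 39.9 CPM in A2S day 4 and 58.9 and 91.9 in S2 day 4 (-0.78 ± 0.18). Vegfa was measured at 18.9 and 16.3 CPM in A2S day 4, against 31.4 and 47.2 in S2 day 4 (-1.12 ± 0.21). Egln3 was higher in A2S day 4, and Bnip3 and Vegfa were lower, with no overlap between the libraries of the groups. Slc2a1, Slc2a3, Hk1, Hk2, Gpi1, Pfkl, Pfkm, Aldoa, Tpi1, Gapdh, Pgk1, Eno2, Pkm, Ldha, Slc16a1, Slc16a3, Pfkfb3, Pfkfb4, Hif1a, Egln1, Ankrd37, Ndrg1 and Ero1l were not called in A2S day 4 against S2 day 4. 2 of the 9 calls were kept when each library was left out in turn. Those lost were Aldoc (1.57), Pgam1 (-0.96), Eno3 (-1.09), Ldhb (-0.62) and Egln3 (0.80) without A2S day 4 replicate A, Aldoc (1.39), Pgam1 (-0.91), Eno3 (-1.29), Ldhb (-0.51), Egln3 (0.54), Bnip3 (-0.44) and Vegfa (-0.81) without S2 day 4 replicate B, Pgam1 (-0.85), Eno3 (-1.36), Ldhb (-0.55), Egln3 (0.80) and Bnip3 (-0.70) without A2S day 4 replicate B and Pgam1 (-0.88), Eno3 (-1.22) and Ldhb (-0.65) without S2 day 4 replicate A.

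Beside A2S day 4 against S2 day 4, fibroblast markers summed to 1802 and 1930 CPM in A2S day 4 and 1969 and 2520 in S2 day 4 (2 of 9 called higher and 2 lower), and pluripotency markers to 124 and 132 CPM in A2S day 4 and 67.9 and 79.2 in S2 day 4 (3 of 10 called higher and 0 lower). The sum of epithelial markers was 394 and 279.9 CPM in A2S day 4 and 304 and 291 in S2 day 4 (2 of 8 called higher and 0 lower), and that of cycling-cell markers 2636 and 2785 CPM in A2S day 4 and 2533 and 1912 in S2 day 4 (3 of 12 called higher and 0 lower). Macrophage markers came to 17.0 and 9.98 CPM in A2S day 4 and 13.4 and 18.5 in S2 day 4 (0 of 5 called higher and 0 lower), and the part of these lists was not tested.

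Slc2a3 stood at 148 and 119 CPM in A2S day 4 and 67.5 and 49.8 in AS day 4 (1.25 ± 0.16). For Hk1 the levels were 50.4 and 43.1 CPM in A2S day 4 and 80.1 and 82.8 in AS day 4 (-0.78 ± 0.13). Pfkp was measured at 110 and 119 CPM in A2S day 4, against 30.4 and 47.4 in AS day 4 (1.48 ± 0.15). Slc2a3 and Pfkp were higher in A2S day 4, and Hk1 was lower, with no overlap between the libraries of the groups. Aldoc stood at 27.5 and 20.0 CPM in A2S day 4 and 1.01 and 2.92 in AS day 4 (3.38 ± 0.51). For Gapdh the levels were 551 and 471 CPM in A2S day 4 and 238 and 385 in AS day 4 (0.70 ± 0.16). Eno3 was measured at 7.82 and 9.45 CPM in A2S day 4, against 27.4 and 47.4 in AS day 4 (-2.21 ± 0.30). Aldoc and Gapdh were higher in A2S day 4, and Eno3 was lower, with no overlap between the libraries of the groups. Ldhb stood at 78.7 and 75.1 CPM in A2S day 4 and 54.3 and 32.8 in AS day 4 (0.91 ± 0.18). For Pdk1 the levels were 64.7 and 49.4 CPM in A2S day 4 and 25.4 and 19.8 in AS day 4 (1.42 ± 0.18). Vegfa was measured at 18.9 and 16.3 CPM in A2S day 4, against 39.6 and 48.3 in AS day 4 (-1.32 ± 0.21). Ldhb and Pdk1 were higher in A2S day 4, and Vegfa was lower, with no overlap between the libraries of the groups. A2S day 4 against AS day 4 also gave calls on the higher side for Hk2 (0.59), Gpi1 (0.33), Aldoa (0.41), Pkm (0.40), Slc16a3 (1.84), Bnip3 (0.67) and Ankrd37 (1.46). Slc2a1, Pfkl, Pfkm, Tpi1, Pgk1, Pgam1, Eno2, Ldha, Slc16a1, Pfkfb3, Pfkfb4, Hif1a, Egln1, Egln3, Ndrg1 and Ero1l were not called in A2S day 4 against AS day 4. 9 of the 16 calls were kept when each library was left out in turn. Those lost were Gpi1 (0.32), Aldoa (0.36), Pkm (0.32), Slc16a3 (1.17), Bnip3 (0.54) and Ankrd37 (1.14) without A2S day 4 replicate A, Gpi1 (0.34) without A2S day 4 replicate B, Gpi1 (0.14) and Aldoa (0.18) without AS day 4 replicate A and Pkm (0.18), Ldhb (0.51), Bnip3 (0.67) and Ankrd37 (1.05) without AS day 4 replicate B.

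The markers that moved with A2S day 4 against AS day 4 were not tested for their part in it. Fibroblast genes came to 1802 and 1930 CPM in A2S day 4 and 5471 and 6364 in AS day 4 (0 of 9 called higher and 7 lower), and pluripotency genes to 124 and 132 CPM in A2S day 4 and 18.8 and 8.53 in AS day 4 (4 of 10 called higher and 0 lower). Epithelial genes came to 394 and 279.9 CPM in A2S day 4 and 337 and 585 in AS day 4 (3 of 8 called higher and 3 lower), and genes of cycling cells to 2636 and 2785 CPM in A2S day 4 and 2133 and 2253 in AS day 4 (4 of 12 called higher and 0 lower). Macrophage genes stood at 17.0 and 9.98 CPM in A2S day 4 and 8.62 and 47.1 in AS day 4 (0 of 5 called higher and 1 lower).

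Whether a component's difference itself changed from day 4 to day 6 was tested as an interaction. The 3 interactions use the same 4 A2S libraries, so a change in A2S alone moves them together. For SGC0946, 13 of 32 tested members were called higher and 2 lower, beside 3.08% and 4.51% of all genes tested, and the median member log2 fold change was 0.67 against -0.01 over all genes. For ascorbic acid, 6 of 32 tested members were called higher and 1 lower, beside 1.56% and 1.79% of all genes tested, and the median member log2 fold change was 0.40 against 0.00 over all genes. For 2i, 11 of 32 tested members were called higher and 1 lower, beside 4.23% and 6.37% of all genes tested, and the median member log2 fold change was 0.60 against 0.00 over all genes. Pgk1 gained 1.59 ± 0.26 for SGC0946 (adjusted p = 0.000213), 1.64 ± 0.26 for ascorbic acid (adjusted p = 0.000491) and 2.04 ± 0.27 for 2i (adjusted p = 4.87e-06). Bnip3 gained 1.67 ± 0.24, 1.35 ± 0.23 and 1.30 ± 0.26 in the same order, and between days 4 and 6 it went from 45.8 and 39.9 to 178 and 199.7 CPM in A2S, from 45.1 and 38.6 to 59.9 and 55.8 in A2, from 58.9 and 91.9 to 136 and 118 in S2 and from 27.4 and 27.4 to 44.4 and 52.8 in AS. Hk2 had -0.90 ± 0.18, adjusted p = 0.00213 for SGC0946 and -0.99 ± 0.19, adjusted p = 0.000432 for 2i. It went in A2S from 108 and 112 to 82.3 and 83.7 CPM while its levels in A2 went from 86.1 and 87.0 to 129 and 116. For SGC0946, 9 members were called without A2S day 6 replicate B and 7 without A2 day 4 replicate A. For ascorbic acid, 4 members were called without A2S day 4 replicate B and 3 without A2S day 6 replicate B or S2 day 4 replicate A. With library totals the split for ascorbic acid was 6 higher and 0 lower.

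The change over days of the SGC0946 difference gave calls on the higher side for Slc2a1 (0.67), Slc2a3 (1.13), Hk1 (0.74), Pfkl (1.15), Aldoa (1.05), Tpi1 (0.68), Pgk1 (1.59), Pkm (0.58), Ldha (0.70), Pfkfb3 (1.30), Egln3 (1.48), Bnip3 (1.67) and Vegfa (1.19), and on the lower side for Hk2 (-0.90) and Slc16a1 (-0.60). Gpi1, Pfkm, Pfkp, Aldoc, Gapdh, Pgam1, Eno2, Eno3, Ldhb, Slc16a3, Pdk1, Pfkfb4, Hif1a, Egln1, Ankrd37, Ndrg1 and Ero1l were not called in the change over days of the SGC0946 difference. 6 of the 15 calls were kept when each library was left out in turn. Those lost were Slc2a1 (0.55), Hk1 (0.65), Pkm (0.50), Ldha (0.61) and Slc16a1 (-0.55) without A2S day 4 replicate B, Slc2a1 (0.28), Hk1 (0.70), Pkm (0.54), Slc16a1 (-0.63), Pfkfb3 (1.14) and Vegfa (0.87) without A2S day 6 replicate B, Slc2a1 (0.64), Hk1 (0.68), Pfkl (1.02), Pkm (0.55), Ldha (0.59), Slc16a1 (-0.49), Egln3 (1.02) and Vegfa (0.87) without A2 day 4 replicate A, Slc2a1 (0.68) without A2 day 4 replicate B, Slc2a1 (0.65), Pkm (0.55) and Slc16a1 (-0.41) without A2 day 6 replicate A, Slc2a1 (0.68) and Pfkfb3 (1.17) without A2 day 6 replicate B, Pfkl (0.94), Slc16a1 (-0.67) and Pfkfb3 (1.21) without A2S day 4 replicate A and Slc16a1 (-0.58) without A2S day 6 replicate A.

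The change over days of the ascorbic acid difference gave calls on the higher side for Slc2a3 (0.90), Pgk1 (1.64), Pgam1 (1.48), Bnip3 (1.35), Vegfa (1.29) and Ndrg1 (2.83), and on the lower side for Hk2 (-0.65). Ndrg1 rests on few UMIs, and its A2S day 4 libraries were far apart, at 14.6 and 3.68 CPM (54 and 7 UMIs). In S2 day 4 it stood at 13.8 and 7.38 CPM (40 and 18 UMIs). Slc2a1, Hk1, Gpi1, Pfkl, Pfkm, Pfkp, Aldoa, Aldoc, Tpi1, Gapdh, Eno2, Eno3, Pkm, Ldha, Ldhb, Slc16a1, Slc16a3, Pdk1, Pfkfb3, Pfkfb4, Hif1a, Egln1, Egln3, Ankrd37 and Ero1l were not called in the change over days of the ascorbic acid difference. 2 of the 7 calls were kept when each library was left out in turn. Those lost were Slc2a3 (0.76), Hk2 (-0.63) and Pgam1 (1.43) without A2S day 4 replicate B, Slc2a3 (0.60), Hk2 (-0.66), Pgam1 (1.41) and Vegfa (0.97) without A2S day 6 replicate B, Slc2a3 (0.86), Hk2 (-0.61), Pgam1 (1.44) and Ndrg1 (2.26) without S2 day 4 replicate A, Hk2 (-0.68) and Pgam1 (1.54) without A2S day 4 replicate A, Hk2 (-0.64) without A2S day 6 replicate A, Hk2 (-0.71) and Vegfa (0.98) without S2 day 4 replicate B and Hk2 (-0.53) and Pgam1 (1.34) without S2 day 6 replicate A.

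The change over days of the 2i difference gave calls on the higher side for Slc2a3 (0.67), Hk1 (0.72), Aldoa (1.07), Tpi1 (0.83), Gapdh (0.82), Pgk1 (2.04), Ldha (0.91), Pfkfb3 (1.79), Bnip3 (1.30), Vegfa (2.41) and Ndrg1 (1.82), and on the lower side for Hk2 (-0.99). Slc2a1, Gpi1, Pfkl, Pfkm, Pfkp, Aldoc, Pgam1, Eno2, Eno3, Pkm, Ldhb, Slc16a1, Slc16a3, Pdk1, Pfkfb4, Hif1a, Egln1, Egln3, Ankrd37 and Ero1l were not called in the change over days of the 2i difference. 8 of the 12 calls were kept when each library was left out in turn. Those lost were Slc2a3 (0.53), Hk1 (0.62), Gapdh (0.71) and Ndrg1 (1.33) without A2S day 4 replicate B, Slc2a3 (0.36), Gapdh (0.71) and Ndrg1 (1.53) without A2S day 6 replicate B, Slc2a3 (0.47) without AS day 4 replicate A, Slc2a3 (0.70) without AS day 6 replicate A, Slc2a3 (0.63) and Gapdh (0.76) without AS day 6 replicate B and Gapdh (0.40) without AS day 4 replicate B.

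**Figure D3:**
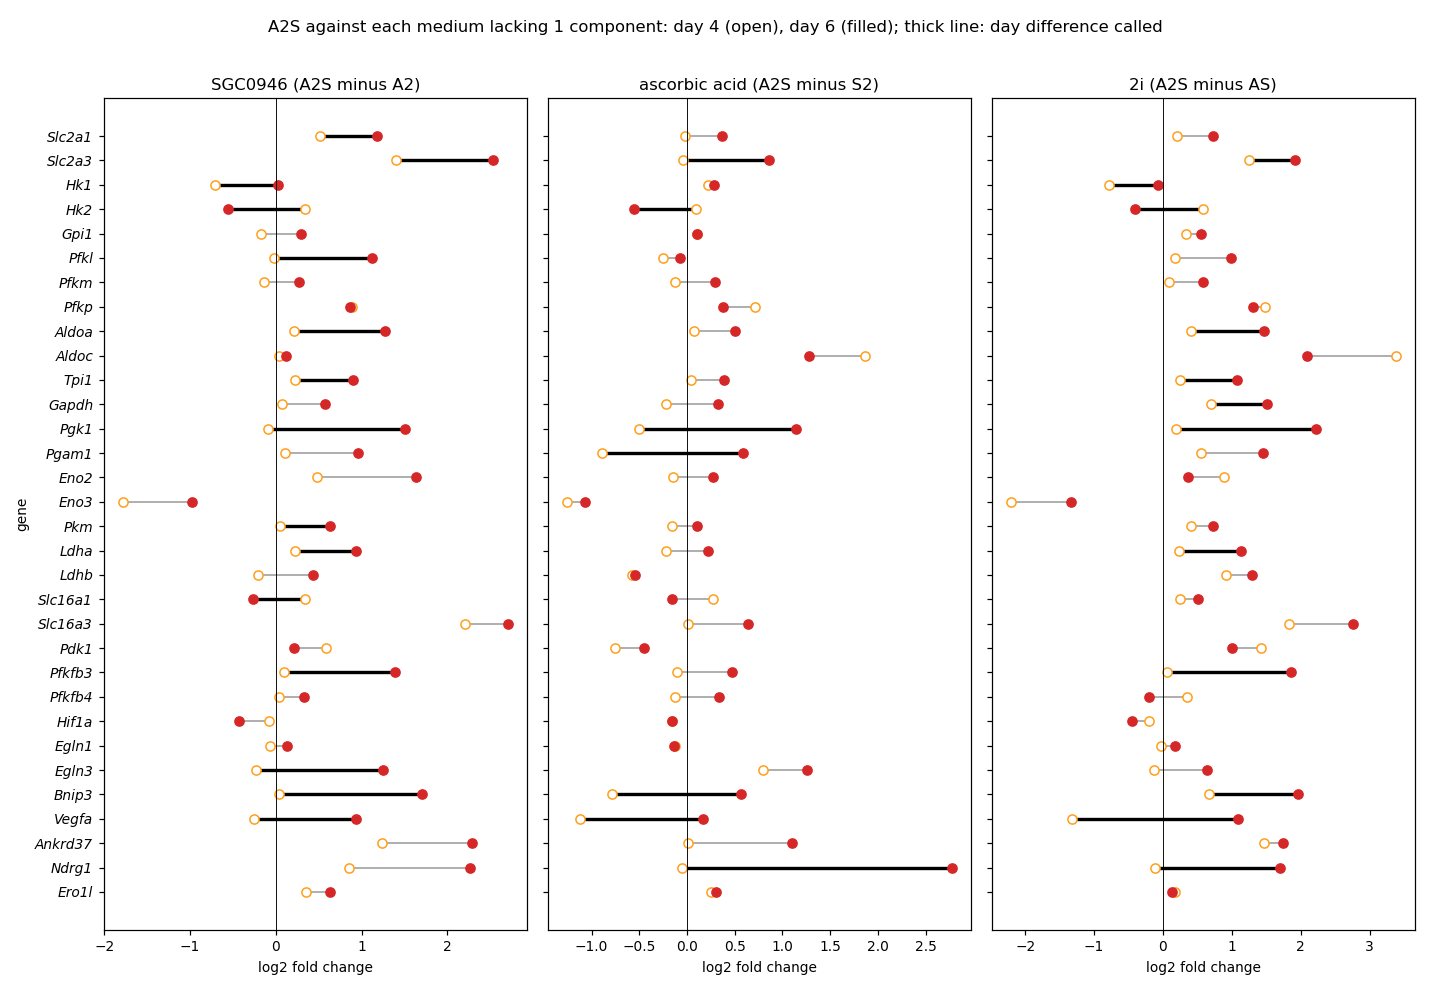
Log2 fold change of A2S against the medium lacking SGC0946 (left), ascorbic acid (middle) or 2i (right), on day 4 (open) and day 6 (filled), for each tested member; a thick line marks a called difference between the days. The panels share the A2S libraries; for SGC0946, Pgk1 and Bnip3 lie further right on day 6 and Hk2 further left.

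Against serum medium at the same age, A2S day 6 was higher for most tested members. The column Eno1b, which is not a member, stood at 202.6 and 192.2 CPM in A2S day 6 and 177.4 and 161.2 in FBS day 6. 22 of 32 tested members were called higher and 3 lower, beside 27.3% and 25.4% of all genes tested, and the median member log2 fold change was 0.89 against 0.04 over all genes. Slc16a3 stood at 57.4 and 73.2 CPM against 1.95 and 7.47 (3.95 ± 0.34, adjusted p = 3.46e-11), Pgk1 at 324 and 316 against 94.6 and 90.1 (1.79 ± 0.19, adjusted p = 2.73e-09) and Pkm at 2468 and 2595 against 1080 and 1007 (1.28 ± 0.11, adjusted p = 2.87e-11). The libraries did not overlap for these 3 genes. Hif1a was lower in A2S (-0.50 ± 0.11, adjusted p = 0.000365), at 138 and 118 CPM, its lowest group.

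Slc2a3 stood at 503 and 736 CPM in A2S day 6 and 77.5 and 85.7 in FBS day 6 (2.93 ± 0.15). For Hk1 the levels were 52.7 and 55.6 CPM in A2S day 6 and 63.6 and 76.9 in FBS day 6 (-0.36 ± 0.13). Pfkp was measured at 136 and 107 CPM in A2S day 6, against 31.0 and 37.3 in FBS day 6 (1.85 ± 0.16). Slc2a3 and Pfkp were higher in A2S day 6, and Hk1 was lower, with no overlap between the libraries of the groups. Hif1a stood at 138 and 118 CPM in A2S day 6 and 179 and 184 in FBS day 6 (-0.50 ± 0.11). For Egln3 the levels were 73.6 and 85.0 CPM in A2S day 6 and 18.4 and 20.7 in FBS day 6 (2.03 ± 0.21). Ankrd37 was measured at 19.6 and 33.01 CPM in A2S day 6, against 6.69 and 3.08 in FBS day 6 (2.33 ± 0.34). Egln3 and Ankrd37 were higher in A2S day 6, and Hif1a was lower, with no overlap between the libraries of the groups. A2S day 6 against FBS day 6 also gave calls on the higher side for Slc2a1 (1.36), Pfkl (0.81), Pfkm (0.80), Aldoa (1.12), Aldoc (0.80), Tpi1 (0.80), Gapdh (1.23), Pgam1 (1.23), Eno2 (1.17), Pkm (1.28), Ldha (0.82), Ldhb (1.30), Slc16a1 (0.62), Pdk1 (0.52), Pfkfb3 (1.33) and Bnip3 (1.10), and on the lower side for Eno3 (-1.24). Hk2, Gpi1, Pfkfb4, Egln1, Vegfa, Ndrg1 and Ero1l were not called in A2S day 6 against FBS day 6. 20 of the 25 calls were kept when each library was left out in turn. Those lost were Hk1 (-0.33), Aldoc (0.78) and Pdk1 (0.38) without A2S day 6 replicate A, Hk1 (-0.24) without FBS day 6 replicate B, Aldoc (0.81) without A2S day 6 replicate B and Aldoc (0.53), Eno2 (0.69) and Eno3 (-0.98) without FBS day 6 replicate A.

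In the same libraries as A2S day 6 against FBS day 6, summed fibroblast markers stood at 1653 and 1425 CPM in A2S day 6 and 7911 and 8264 in FBS day 6 (0 of 9 called higher and 9 lower), and pluripotency markers at 943 and 1068 CPM in A2S day 6 and 34.9 and 33.8 in FBS day 6 (10 of 10 called higher and 0 lower). Summed epithelial markers stood at 845 and 779 CPM in A2S day 6 and 204 and 209 in FBS day 6 (6 of 8 called higher and 2 lower), and cycling-cell markers at 2728 and 2725 CPM in A2S day 6 and 1232 and 1253 in FBS day 6 (12 of 12 called higher and 0 lower). For macrophage markers the sum was 13.7 and 26.1 CPM in A2S day 6 and 9.76 and 114 in FBS day 6 (0 of 5 called higher and 4 lower), and none of these lists was tested for its part.

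In ESCs most members were lower with A2S, for which the labels gave no doses in these cells. For ESC with A2S against ESC, 4 of 32 tested members were called higher and 22 lower, beside 25.2% and 21.5% of all genes tested, and the median member log2 fold change was -0.77 against 0.04 over all genes. Slc16a3 stood at 85.9 and 83.2 CPM in ESCs and 1.64 and 0.281 with A2S (-6.39 ± 0.41, adjusted p = 6.32e-14), the latter from 6 and 1 UMIs, too few to fix the size of the fold. Pdk1 stood at 261 and 250 CPM and 18.0 and 17.7 with A2S (-3.84 ± 0.16, adjusted p = 1.22e-18), and Egln3 at 32.8 and 42.2 and 2.73 and 1.41 (-4.16 ± 0.33, adjusted p = 8.71e-12). Bnip3 stood at 136 and 176 and 12.0 and 15.8 (-3.49 ± 0.19, adjusted p = 1.14e-15). For each of these 4 genes both A2S libraries were far below both ESC libraries. Among enzymes, Pfkl (-2.62 ± 0.19, adjusted p = 1.51e-12), Pgk1 (-2.05 ± 0.23, adjusted p = 9.08e-09) and Tpi1, encoding triosephosphate isomerase (-1.67 ± 0.11, adjusted p = 5.62e-14), were lower. Hk1 and Pfkp rose, Hk1 from 17.3 and 19.6 to 68.5 and 70.3 CPM (1.91 ± 0.15, adjusted p = 8.47e-12) and Pfkp from 64.8 and 54.7 to 165 and 159.8 (1.45 ± 0.14, adjusted p = 7.33e-10). Pfkp then made up 74.9% and 75.8% of phosphofructokinase UMIs, against 29.8% and 25.3% without A2S.

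Hk2 stood at 225 and 223 CPM in ESCs with A2S and 179 and 175 in ESCs (0.34 ± 0.12). For Pfkl, the liver phosphofructokinase, the levels were 19.1 and 17.2 CPM in ESCs with A2S and 108 and 115 in ESCs (-2.62 ± 0.19). Pgk1 was measured at 30.6 and 27.0 CPM in ESCs with A2S, against 102 and 137 in ESCs (-2.05 ± 0.23). Hk2 was higher in ESCs with A2S, and Pfkl and Pgk1 were lower, with no overlap between the libraries of the groups. ESC with A2S against ESC also gave calls on the higher side for Pfkfb4 (1.61), and on the lower side for Slc2a1 (-1.63), Slc2a3 (-0.70), Pfkm (-0.38), Aldoa (-0.52), Aldoc (-1.76), Tpi1 (-1.67), Pgam1 (-0.98), Eno3 (-2.83), Pkm (-0.85), Ldha (-0.86), Ldhb (-1.21), Pfkfb3 (-0.98), Hif1a (-0.40), Egln1 (-0.55), Vegfa (-0.65) and Ankrd37 (-1.08). Gpi1, Gapdh, Eno2, Slc16a1, Ndrg1 and Ero1l were not called in ESC with A2S against ESC. 18 of the 26 calls were kept when each library was left out in turn. Those lost were Hk2 (0.36) and Pfkm (-0.41) without ESC replicate A, Hk2 (0.32), Pfkm (-0.35), Pgam1 (-0.83), Pfkfb3 (-0.42), Pfkfb4 (1.02) and Egln1 (-0.48) without ESC replicate B, Hk2 (0.33), Pfkm (-0.44), Pfkfb3 (-0.91) and Ankrd37 (-0.72) without ESC A2S replicate A and Pfkm (-0.31), Pgam1 (-0.72), Pfkfb4 (0.83) and Hif1a (-0.33) without ESC A2S replicate B.

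Beside ESC with A2S against ESC, fibroblast markers summed to 721 and 671 CPM in ESCs with A2S and 333 and 342 in ESCs (5 of 9 called higher and 1 lower), and pluripotency markers to 5815 and 5830 CPM in ESCs with A2S and 4841 and 4633 in ESCs (4 of 10 called higher and 2 lower). The sum of epithelial markers was 814 and 869.7 CPM in ESCs with A2S and 1146 and 1575 in ESCs (0 of 8 called higher and 6 lower), and that of cycling-cell markers 4973 and 5105 CPM in ESCs with A2S and 4849 and 4870 in ESCs (5 of 12 called higher and 1 lower). Macrophage markers came to 16.9 and 23.4 CPM in ESCs with A2S and 15.2 and 14.1 in ESCs (0 of 5 called higher and 0 lower), and the part of these lists was not tested.

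The difference between the 2 settings, A2S against serum medium on reprogramming day 6 and A2S against none in ESCs, was tested in the same fit, a comparison added after these values were seen. 23 of 32 tested members were called higher and 1 lower, beside 26.4% and 22.4% of all genes tested, and the median member log2 fold change was 1.66 against 0.04 over all genes. Bnip3 differed by 4.59 ± 0.24, adjusted p = 7.18e-16, Pdk1 by 4.35 ± 0.21, adjusted p = 8.52e-17, Egln3 by 6.19 ± 0.39, adjusted p = 4.87e-14 and Pgk1 by 3.84 ± 0.30, adjusted p = 4.48e-12. Hk1 differed the other way (-2.27 ± 0.20, adjusted p = 8.54e-11), the 1 member called lower. Pfkp rose with A2S in both settings, and its difference was not called (0.41 ± 0.22, adjusted p = 0.118, interval -0.01 to 0.83). The settings also differ in cell type and days of treatment, and in what the labels say of doxycycline and of doses. These cannot be told apart.

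The difference between settings gave calls on the higher side for Slc2a1 (3.00), Slc2a3 (3.63), Pfkl (3.42), Pfkm (1.18), Aldoa (1.64), Aldoc (2.55), Tpi1 (2.46), Gapdh (1.34), Pgk1 (3.84), Pgam1 (2.202), Eno3 (1.59), Pkm (2.13), Ldha (1.68), Ldhb (2.51), Slc16a1 (0.90), Slc16a3 (10.35), Pdk1 (4.35), Pfkfb3 (2.31), Egln1 (0.59), Egln3 (6.19), Bnip3 (4.59), Vegfa (0.78) and Ankrd37 (3.41), and on the lower side for Hk1 (-2.27). Hk2, Gpi1, Pfkp, Eno2, Pfkfb4, Hif1a, Ndrg1 and Ero1l were not called in the difference between settings. 21 of the 24 calls were kept when each library was left out in turn. Those lost were Eno3 (1.35) without A2S day 6 replicate A, Eno3 (1.43), Egln1 (0.52) and Vegfa (0.64) without ESC A2S replicate B, Egln1 (0.42) and Vegfa (0.46) without A2S day 6 replicate B, Egln1 (0.52) without ESC replicate B, Egln1 (0.61) without ESC A2S replicate A and Egln1 (0.57) without FBS day 6 replicate A.

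**Figure D4:**
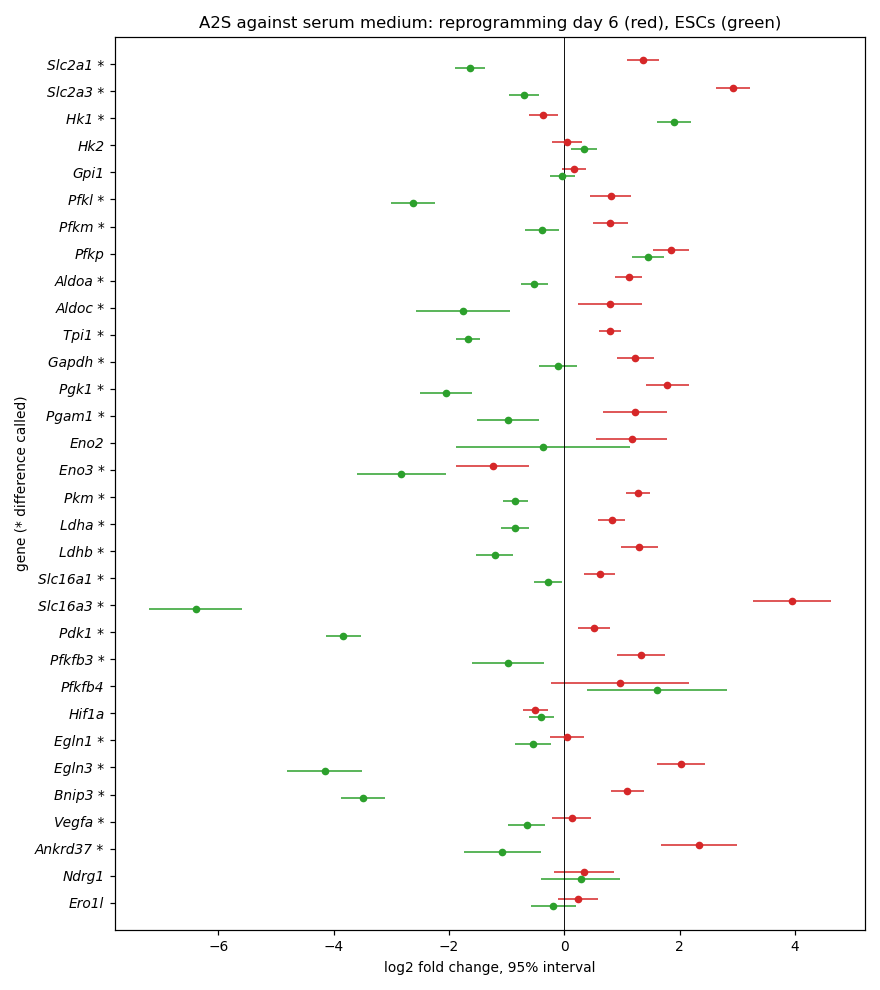
Log2 fold changes with 95% intervals of A2S against FBS on reprogramming day 6 (red) and of ESCs with A2S against ESCs (green), by member; an asterisk marks a called difference between them. Most members lie right of 0 in red and left of 0 in green, and Hk1 the other way round.

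The latest cells of each route were set against ESCs, and the difference between the routes was not tested. For A2S day 6, 16 of 32 tested members were called higher and 8 lower, beside 29.6% and 25.1% of all genes tested, and the median member log2 fold change was 0.53 against 0.06 over all genes. For FBS day 12, 6 of 32 tested members were called higher and 19 lower, beside 33.9% and 32.7% of all genes tested, and the median member log2 fold change was -0.50 against 0.01 over all genes. Slc2a1, the widespread glucose transporter, stood at 674 and 750.4 CPM in ESCs, 208 and 334 in A2S day 6 (-1.40 ± 0.13, adjusted p = 2.2e-10) and 125 and 105 in FBS day 12 (-2.64 ± 0.15, adjusted p = 3.56e-16). Both routes stayed below ESCs for it. Pgk1, Tpi1 and Gapdh were above the ESC level on A2S day 6 (1.42 ± 0.19, 1.01 ± 0.10 and 1.05 ± 0.16). Pfkfb3, whose product makes an activator of phosphofructokinase, stood at 53.6 and 66.3 CPM against 9.26 and 17.8 in ESCs (2.13 ± 0.24, adjusted p = 6.75e-09). Eno2, the neuronal enolase, was higher than in ESCs by both routes, at 29.6 and 27.1 CPM on A2S day 6, 31.98 and 38.3 on FBS day 12 and 2.53 and 1.48 in ESCs. Bnip3 and Slc16a3 were not called between A2S day 6 and ESCs (intervals -0.01 to 0.55 and -0.82 to 0.08). Both comparisons share the ESC libraries.

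Hk1 stood at 52.7 and 55.6 CPM in A2S day 6 and 17.3 and 19.6 in ESCs (1.55 ± 0.16). For Hk2 the levels were 82.3 and 83.7 CPM in A2S day 6 and 179 and 175 in ESCs (-1.09 ± 0.13). Pfkl was measured at 69.5 and 79.1 CPM in A2S day 6, against 108 and 115 in ESCs (-0.59 ± 0.17). Hk1 was higher in A2S day 6, and Hk2 and Pfkl were lower, with no overlap between the libraries of the groups. Aldoc stood at 63.6 and 62.4 CPM in A2S day 6 and 19.4 and 23.7 in ESCs (1.54 ± 0.31). For Pgk1 the levels were 324 and 316 CPM in A2S day 6 and 102 and 137 in ESCs (1.42 ± 0.19). Slc16a1 was measured at 100.1 and 104 CPM in A2S day 6, against 193 and 186 in ESCs (-0.90 ± 0.13). Aldoc and Pgk1 were higher in A2S day 6, and Slc16a1 was lower, with no overlap between the libraries of the groups. Pdk1 stood at 101 and 84.3 CPM in A2S day 6 and 261 and 250 in ESCs (-1.46 ± 0.13). For Hif1a the levels were 138 and 118 CPM in A2S day 6 and 204 and 207 in ESCs (-0.68 ± 0.11). Ndrg1 was measured at 29.0 and 41.5 CPM in A2S day 6, against 11.8 and 10.4 in ESCs (1.67 ± 0.31). Ndrg1 was higher in A2S day 6, and Pdk1 and Hif1a were lower, with no overlap between the libraries of the groups. A2S day 6 against ESC also gave calls on the higher side for Gpi1 (0.78), Pfkp (1.03), Aldoa (0.57), Tpi1 (1.01), Gapdh (1.05), Pkm (0.51), Ldha (0.56), Egln3 (1.07), Ankrd37 (0.87) and Ero1l (0.73), and on the lower side for Slc2a3 (-0.57) and Eno3 (-1.23). Pfkm, Pgam1, Ldhb, Slc16a3, Pfkfb4, Egln1, Bnip3 and Vegfa were not called in A2S day 6 against ESC. 21 of the 24 calls were kept when each library was left out in turn. Those lost were Slc2a3 (-0.32) and Pfkl (-0.49) without A2S day 6 replicate A, Ankrd37 (0.45) without A2S day 6 replicate B, Ankrd37 (0.87) without ESC replicate A and Ankrd37 (0.88) without ESC replicate B.

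The markers that moved with A2S day 6 against ESC were not tested for their part in it. Fibroblast genes came to 1653 and 1425 CPM in A2S day 6 and 333 and 342 in ESCs (8 of 9 called higher and 0 lower), and pluripotency genes to 943 and 1068 CPM in A2S day 6 and 4841 and 4633 in ESCs (0 of 10 called higher and 10 lower). Epithelial genes came to 845 and 779 CPM in A2S day 6 and 1146 and 1575 in ESCs (2 of 8 called higher and 4 lower), and genes of cycling cells to 2728 and 2725 CPM in A2S day 6 and 4849 and 4870 in ESCs (0 of 12 called higher and 10 lower). Macrophage genes stood at 13.7 and 26.1 CPM in A2S day 6 and 15.2 and 14.1 in ESCs (0 of 5 called higher and 0 lower).

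Slc2a3 stood at 192 and 223 CPM in FBS day 12 and 881 and 956 in ESCs (-2.15 ± 0.14). For Hk1 the levels were 62.8 and 68.6 CPM in FBS day 12 and 17.3 and 19.6 in ESCs (1.83 ± 0.16). Gpi1 was measured at 395 and 399 CPM in FBS day 12, against 300.1 and 299 in ESCs (0.41 ± 0.11). Hk1 and Gpi1 were higher in FBS day 12, and Slc2a3 was lower, with no overlap between the libraries of the groups. Aldoc stood at 109 and 82.7 CPM in FBS day 12 and 19.4 and 23.7 in ESCs (2.14 ± 0.31). For Slc16a1 the levels were 61.7 and 73.1 CPM in FBS day 12 and 193 and 186 in ESCs (-1.49 ± 0.14). Slc16a3 was measured at 11.4 and 18.2 CPM in FBS day 12, against 85.9 and 83.2 in ESCs (-2.50 ± 0.30). Aldoc was higher in FBS day 12, and Slc16a1 and Slc16a3 were lower, with no overlap between the libraries of the groups. Pdk1 stood at 73.7 and 80.2 CPM in FBS day 12 and 261 and 250 in ESCs (-1.73 ± 0.14). For Vegfa the levels were 38.3 and 32.3 CPM in FBS day 12 and 68.6 and 66.6 in ESCs (-0.94 ± 0.19). Ndrg1 was measured at 68.0 and 67.1 CPM in FBS day 12, against 11.8 and 10.4 in ESCs (2.61 ± 0.30). Ndrg1 was higher in FBS day 12, and Pdk1 and Vegfa were lower, with no overlap between the libraries of the groups. FBS day 12 against ESC also gave calls on the higher side for Pfkfb4 (1.78), and on the lower side for Hk2 (-0.88), Pfkl (-0.90), Pfkm (-0.41), Aldoa (-0.62), Gapdh (-0.50), Pgk1 (-0.63), Pgam1 (-1.61), Pkm (-0.76), Ldha (-0.50), Ldhb (-0.59), Egln3 (-0.77), Bnip3 (-0.51) and Ankrd37 (-1.49). Pfkp, Tpi1, Eno3, Pfkfb3, Hif1a, Egln1 and Ero1l were not called in FBS day 12 against ESC. 19 of the 25 calls were kept when each library was left out in turn. Those lost were Pfkm (-0.44) without ESC replicate A, Pfkm (-0.38), Pgk1 (-0.40), Pfkfb4 (1.18), Egln3 (-0.58) and Bnip3 (-0.30) without ESC replicate B, Pfkm (-0.43), Gapdh (-0.46), Pfkfb4 (1.52) and Bnip3 (-0.40) without FBS day 12 replicate A and Pfkm (-0.39), Pgk1 (-0.54) and Egln3 (-0.58) without FBS day 12 replicate B.

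In the same libraries as FBS day 12 against ESC, summed fibroblast markers stood at 8780 and 7677 CPM in FBS day 12 and 333 and 342 in ESCs (9 of 9 called higher and 0 lower), and pluripotency markers at 459.7 and 559.9 CPM in FBS day 12 and 4841 and 4633 in ESCs (0 of 10 called higher and 10 lower). Summed epithelial markers stood at 240.4 and 256 CPM in FBS day 12 and 1146 and 1575 in ESCs (2 of 8 called higher and 6 lower), and cycling-cell markers at 1276 and 1447 CPM in FBS day 12 and 4849 and 4870 in ESCs (0 of 12 called higher and 12 lower). For macrophage markers the sum was 12.6 and 173 CPM in FBS day 12 and 15.2 and 14.1 in ESCs (4 of 5 called higher and 0 lower), and none of these lists was tested for its part.

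Within reprogramming cultures, cells with at least 1 UMI of Nanog, a pluripotency gene, were set against cells with none in the same library. The classes rest on detected UMIs, which also depend on how many UMIs a cell holds, so a cell with none may still express Nanog. The 8 libraries that held at least 20 of each class were used: A2S day 4 A, both day 6 libraries of A2S, S2 and AS, and FBS day 12 A. Of the 31 members tested here, 10 were called higher in Nanog-positive cells and 8 lower, beside 22.4% and 24.5% of all genes tested. Slc2a3 ran from 490.3 to 1166 CPM in Nanog-positive cells (median 771) and from 110.1 to 349.6 in Nanog-zero cells (median 143), higher in 8 of 8 libraries with no overlap (2.29 ± 0.10, adjusted p = 9.46e-12). Pfkl (0.91 ± 0.13, adjusted p = 1.64e-05), Slc16a1 (0.67 ± 0.11, adjusted p = 5.09e-05), Ldha (0.50 ± 0.07, adjusted p = 7.2e-06) and Slc16a3 (1.33 ± 0.28, adjusted p = 0.000848) were also higher in 8 of 8 libraries. Eno2 ran the other way in 8 of 8, with medians of 8.94 CPM in positive and 30.2 in zero cells (-1.81 ± 0.26, adjusted p = 1.24e-05), and so did Egln3 (-0.88 ± 0.17, adjusted p = 0.000272). Egln3 on A2S day 6 was at 45.0 and 50.4 CPM in positive and 108 and 135 in zero cells. Bnip3, which rose with A2S over the whole library, was not called between the classes (0.09 ± 0.14, adjusted p = 0.644, interval -0.19 to 0.37). Nanog UMIs from free RNA were not estimated, and many positive cells held a single one: AS day 6 A had 22 cells with at least 1 and 11 with at least 2. With at least 2 Nanog UMIs, 13 members were called, Slc2a3 at 2.49. In FBS day 6 0 cells held a Nanog UMI beside 359 without in A, and 1 beside 196 in B, whose cells without one had a median of 9148 and 10497 UMIs. Median UMIs per cell differed between the classes in some libraries, as in AS day 6 A with 16865.5 in positive and 12999 in zero cells. Cycling-cell markers moved with the classes, with 12 of 12 called higher in Nanog-positive cells, as did fibroblast markers, with 7 of 7 tested called lower, and their part was not tested. With each cell thinned to 2000 UMIs, 3 members were called: Slc2a3 (1.88), Ldha (0.30) and Aldoc (-1.29) in the 3 libraries that still held 20 cells of each class, and Slc2a1, Hk1 and Pgk1 changed sign.

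The comparison of Nanog classes gave calls on the higher side for Slc2a1 (0.70), Slc2a3 (2.29), Pfkl (0.91), Aldoa (0.52), Pgk1 (0.26), Pkm (0.30), Ldha (0.50), Slc16a1 (0.67), Slc16a3 (1.33) and Ankrd37 (0.79), and on the lower side for Hk1 (-0.43), Gpi1 (-0.21), Aldoc (-0.65), Eno2 (-1.81), Eno3 (-1.08), Egln3 (-0.88), Vegfa (-0.53) and Ero1l (-0.52). Hk2, Pfkm, Pfkp, Tpi1, Gapdh, Pgam1, Ldhb, Pdk1, Pfkfb3, Hif1a, Egln1, Bnip3 and Ndrg1 were not called in the comparison of Nanog classes. 12 of the 18 calls were kept when each library was left out in turn. Those lost were Hk1 (-0.34), Gpi1 (-0.16) and Ankrd37 (0.70) without A2S day 4 replicate A, Hk1 (-0.37), Gpi1 (-0.20), Aldoc (-0.56) and Pgk1 (0.27) without S2 day 6 replicate A, Hk1 (-0.35), Gpi1 (-0.18), Pgk1 (0.26) and Ankrd37 (0.76) without AS day 6 replicate B, Gpi1 (-0.20), Aldoc (-0.67) and Vegfa (-0.46) without A2S day 6 replicate B, Gpi1 (-0.23), Aldoc (-0.56), Pgk1 (0.24), Vegfa (-0.50) and Ankrd37 (0.74) without S2 day 6 replicate B, Gpi1 (-0.23), Pgk1 (0.24) and Ankrd37 (0.46) without AS day 6 replicate A and Pgk1 (0.20) without FBS day 12 replicate A.

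**Figure D5:**
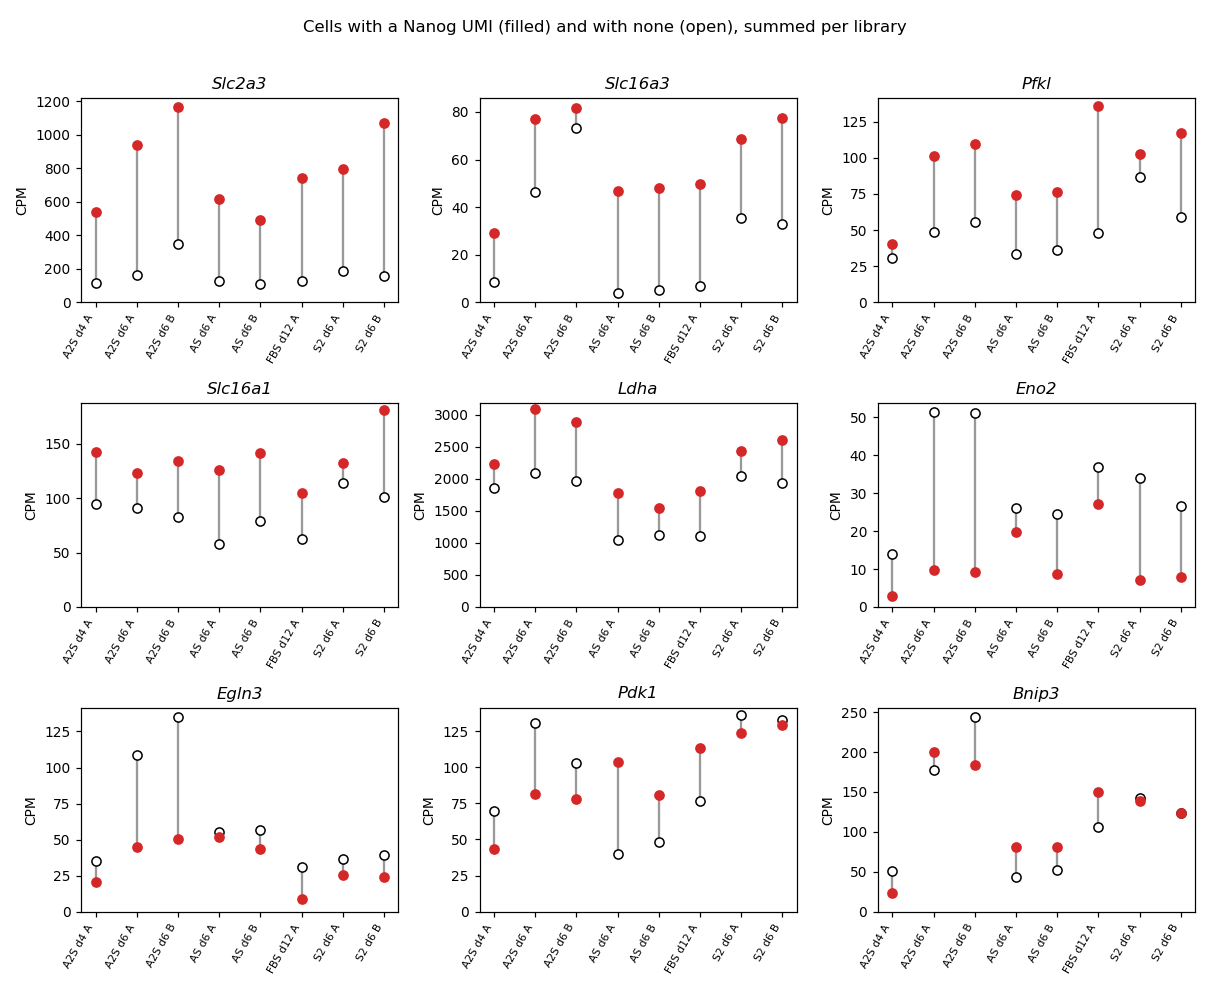
Levels (CPM) of 9 members in cells with a Nanog UMI (filled) and without (open), summed per library, for the 8 libraries with at least 20 cells of each. Filled points lie above open ones in 8 of 8 libraries for Slc2a3 and Pfkl, and below in 8 of 8 for Eno2 and Egln3.

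Neighbouring pathways were read from lists of other genes, each with the median log2 fold change of its tested genes, and the share of all genes called in each comparison is the one given above. Of other HIF targets and hypoxia genes, 19 of 43 higher and 2 lower (median 0.38) were called in A2S day 6 against A2, 10 of 43 higher and 4 lower (median 0.03) against S2 and 13 of 43 higher and 7 lower (median 0.17) against AS. Car12, a carbonic anhydrase gene, stood at 20.6 and 20.9 CPM in A2S and 7.79 and 5.38 in AS (log2 fold change 1.63). Against FBS day 6 this list gave 14 of 43 higher and 12 lower (median 0.12), with Car12 at 2.10, Ddit4 at 1.72 and Edn1 at -3.02. The collagen cross-linker gene Lox, a HIF target that is also high in fibroblasts, was lower in A2S than in FBS on day 6 (-2.33). In ESC with A2S against ESC, 11 of 43 higher and 16 lower (median -0.18) of this list were called, with Pgm2 at -2.13 and Lox at 4.38. Removed feeder barcodes were 14.22% and 11.18% of all barcodes in ESCs with A2S, and 3.50% and 3.53% in ESCs. The part of feeder RNA in Lox was not tested. Pentose phosphate genes gave 3 of 10 higher and 5 lower (median -0.30) against A2 on day 6, 4 of 10 higher and 3 lower (median 0.15) against S2 and 4 of 10 higher and 3 lower (median -0.17) against AS. In A2S day 6 against FBS day 6 they gave 4 of 10 higher and 4 lower (median 0.29), and Pgd, an oxidative-branch enzyme gene, was at 0.96. Genes of pyruvate oxidation and the TCA cycle gave 2 of 26 higher and 6 lower (median -0.09) against A2, 0 of 26 higher and 4 lower (median -0.07) against S2 and 10 of 26 higher and 1 lower (median 0.14) against AS. Against FBS they gave 12 of 26 higher and 5 lower (median 0.13), with Idh3a at 1.30, Dlat at 1.14 and Pdp1 at -1.89. Pcx, encoding pyruvate carboxylase, was lower in A2S than in S2 (-1.80), AS (-1.38) and FBS (-1.54). In ESC with A2S against ESC, 14 of 26 higher and 3 lower (median 0.25) were called. Gluconeogenic genes gave 1 of 3 higher and 1 lower (median 0.44) against FBS on day 6. Of other glycolysis isoforms and regulators, 9 of 16 higher and 3 lower (median 0.56) were called there, and 2 of 16 higher and 5 lower (median -0.40) in ESC with A2S against ESC. Among the latter Myc, a transcription factor gene with glycolytic targets, stood at 50.1 and 55.5 CPM without and 12.8 and 11.8 with A2S, and its paralogue Mycn at 564 and 576 and 192 and 179.7.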

How the data were processed

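Libraries were made with the SureCell 3' kit on a ddSEQ instrument, per the labels' protocols, from 32 samples in 16 groups of 2. The deposited tables give UMI counts for each cell and gene. The submitters' processing notes name bcl2fastq 2.19, STAR and mm10, and the deposited names mention a knee filter on barcodes. Annotation and counter: not given in the sources used here. Of 8334 barcodes, 689 were on the authors' deposited list of irradiated feeder cells, by barcode alone, and were removed. Their share was uneven between compared groups. It was 27.23% and 23.17% in A2S day 2 and 1.29% and 0.39% in A2S day 6. In FBS it was 35.75% and 26.91% on day 3 and 7.50% and 6.40% on day 12. ESCs with A2S had 14.22% and 11.18%, and ESCs 3.50% and 3.53%. Feeder RNA left in the kept cells was not estimated.

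The counts of the 7645 remaining cells were added up in each library. One model of all 32 libraries (edgeR 4.0.16 under R 4.3.3: quasi-likelihood, TMM, filterByExpr) covered 13228 genes. Calls needed an adjusted p (Benjamini-Hochberg, all tested genes) under 0.05. Levels are CPM on TMM-scaled totals. Bracketed values are log2 differences ± SE with n = 2 libraries a group, the SE being the difference over the root of F, and intervals span 1.96 SE either way. The Nanog classes had a model of their own, blocked by library, over 9906 genes. The model of all libraries was tested on simulated data for A2S against A2 on day 6. It first missed the pass mark set for it, because many changed genes at low CPM were not called, and the criteria were then changed to apply at higher CPM. Intervals of changed genes fell short of their nominal coverage at the lowest levels scored, so a low member not called may still differ. The Nanog model was not tested so. No doublet caller was run, and doublets were not removed here. Whether the authors removed any is not given in the sources used here.

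The members and lists were chosen with earlier results of these data known. For each comparison of 2 groups, levels in every library are given for up to 6 called members each way, those of largest fold whose higher group averaged at least 20 CPM; interactions are given as differences only, and further members and the list genes named were picked from those called. Tried instead were RLE factors, unscaled totals, no filter, DESeq2 1.42.0, a block on the letter, keeping the feeder barcodes, a minimum of 5000 UMIs a cell, fits of the compared groups only and omission of single libraries. The labels do not say whether letters A and B pair samples. Differences of A minus B correlated between -0.101 and 0.0827 over 120 pairs of groups. Such values show no large shift shared by letter and cannot tell whether cultures were paired. FBS day 9 entered no comparison. Python 3.11.15, numpy 2.4.6, pandas 2.3.3 and matplotlib 3.10.9 were used.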

Additional observations from a re-analysis of the deposited data

Results flagged for a closer look

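The members listed here were flagged because the same contrast gave different effects in 2 settings, by edgeR's test of the difference itself at an adjusted p under 0.05; the numbers are log2 differences. For SGC0946, the difference between A2S and A2 changed between days 4 and 6 upward for Slc2a1 (0.67), Slc2a3 (1.13), Hk1 (0.74), Pfkl (1.15), Aldoa (1.05), Tpi1 (0.68), Pgk1 (1.59), Pkm (0.58), Ldha (0.70), Pfkfb3 (1.30), Egln3 (1.48), Bnip3 (1.67) and Vegfa (1.19), and downward for Hk2 (-0.90) and Slc16a1 (-0.60). For ascorbic acid, the difference between A2S and S2 changed between the days upward for Slc2a3 (0.90), Pgk1 (1.64), Pgam1 (1.48), Bnip3 (1.35), Vegfa (1.29) and Ndrg1 (2.83), and downward for Hk2 (-0.65). For 2i, the difference between A2S and AS changed between the days upward for Slc2a3 (0.67), Hk1 (0.72), Aldoa (1.07), Tpi1 (0.83), Gapdh (0.82), Pgk1 (2.04), Ldha (0.91), Pfkfb3 (1.79), Bnip3 (1.30), Vegfa (2.41) and Ndrg1 (1.82), and downward for Hk2 (-0.99). Between reprogramming day 6 and ESCs, the log2 difference that goes with A2S was higher in reprogramming for Slc2a1 (3.00), Slc2a3 (3.63), Pfkl (3.42), Pfkm (1.18), Aldoa (1.64), Aldoc (2.55), Tpi1 (2.46), Gapdh (1.34), Pgk1 (3.84), Pgam1 (2.202), Eno3 (1.59), Pkm (2.13), Ldha (1.68), Ldhb (2.51), Slc16a1 (0.90), Slc16a3 (10.35), Pdk1 (4.35), Pfkfb3 (2.31), Egln1 (0.59), Egln3 (6.19), Bnip3 (4.59), Vegfa (0.78) and Ankrd37 (3.41), and lower for Hk1 (-2.27). Slc16a3 in the last comparison rests on few UMIs in ESCs with A2S. Ndrg1 for ascorbic acid and 2i rests on 54 and 7 UMIs in the A2S day 4 libraries.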

How the results depend on the processing

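Of 8258 member values recomputed under the alternatives, 7762 kept their side of the threshold, and their direction where called. A further 372 lost and 116 gained the threshold. The other 8 changed sign and were called in the main or the alternative fit. Direction was not checked for values called in neither fit. With library totals Ldha in ESC against MEF became 0.049, and with listed cells kept Bnip3 in FBS day 3 against MEF became 0.47. Between Nanog classes, thinning to 2000 UMIs gave Slc2a1 -0.043, Hk1 0.43 and Pgk1 -0.009, with 3 calls of 24 members tested in the 3 libraries left. At least 2 Nanog UMIs gave Pdk1 -0.40. The A2S day 6 libraries alone, chosen after class sizes were seen, gave Slc2a1 -0.21 and Pdk1 -0.55, with 11 calls. Leaving out 1 library at a time, the members called numbered 7 to 13 in FBS day 3 against MEF, 4 to 8 in A2S against A2 on day 4, 3 to 6 against S2 on day 4, 6 to 12 against S2 on day 6, 7 to 15 for the day difference of SGC0946 and 3 to 7 for that of ascorbic acid. With the replicate letter as a block (replicate block), 605 of 608 values kept their side of the threshold and no count of members called moved by over 1.5 times, with 25 members called in A2S against A2 on day 6. The cause of these shifts was not tested. Library totals moved the median of all genes by 0.317 in ESC against MEF, 0.292 in the added comparison, 0.214 in A2S day 2 against MEF, 0.157 in A2S against FBS on day 6 and 0.151 in FBS day 3 against MEF. Members under 20 CPM, such as Pgam1, Pfkfb4 and Ankrd37, rest on few UMIs.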
